A study of Mus musculus with 61 samples.

Results

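Livers of NZO mice were compared with livers of NOD mice across all genes. The comparison used the 16 libraries of these strains, 8 of NZO and 8 of NOD, out of 60 libraries with a column of counts and 61 labelled samples. The series holds liver RNA of the 8 inbred founder strains of the Diversity Outbred mouse stock, sequenced from polyadenylated RNA of frozen, pulverised tissue. Of 18754 genes in the count table, 16165 passed the filter on low counts and were tested.

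NZO (New Zealand Obese) is an inbred strain that becomes obese on several genes and is used as a model of type 2 diabetes, which develops mainly in males. NOD (non-obese diabetic) is an inbred strain whose T cells destroy the insulin-producing beta cells, and it is used as a model of type 1 diabetes. Per the labels, all mice of both strains were fed the same high-fat, high-sugar diet, in which fat made up 45% as labelled, and no library of another diet entered the comparison. The labels give no sex, age, body weight, blood glucose, insulin or time of collection, and whether any mouse was obese or diabetic is not given. Each group is 1 inbred strain, so the many alleles that differ between the strains cannot be told apart from obesity, insulin resistance or autoimmunity. The labels do not state that each library is a separate mouse. The p-values then measure only how far the libraries of a strain spread, and some of that may be technical. In the gene tests over all libraries this spread was estimated from every strain of the series, not from NZO and NOD alone.

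In the liver, insulin normally raises the transcription factor SREBP-1c and with it fatty acid synthesis, and it holds back FOXO1 and with it gluconeogenesis and genes such as Irs2 and Igfbp1. Type I interferons act through a transcription factor complex that includes STAT2 and IRF9 and binds interferon-stimulated response elements in the promoters of their target genes. Resident macrophages of the liver, the Kupffer cells, and infiltrating leukocytes also contribute RNA to a whole-liver library, and in bulk RNA fewer cells of a type and less RNA per cell cannot be told apart.

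The libraries held 22.4 to 69.2 M reads in NZO and 22.97 to 34.3 M reads in NOD. Liver markers were abundant in all 16 libraries, but the library NZO 8 stood apart. Albumin, Alb, was at 13100.4 CPM (counts scaled to library size) in NZO 8, against 30569 to 79562 CPM in the other NZO livers and 43694 to 67047 CPM in NOD livers. The median Pearson correlation of NZO 8 with its own strain was 0.932, against 0.964 to 0.977 for the other NZO libraries and 0.946 to 0.965 for NOD. Results are therefore given with and without NZO 8. In both strains the libraries numbered 1 to 4 were high in Xist (1318 to 1421 CPM in NZO, 1056 to 1307 CPM in NOD) and those numbered 5 to 8 were low (0.193 to 1.605 CPM in NZO, 0.868 to 4.06 CPM in NOD), and the Y-linked Ddx3y ran the other way. The share of reads from the ribosomal RNA gene Rn18s-rs5 was 10.9 ± 4.06% in NZO and 5.21 ± 2.61% in NOD (SD, n = 8 each, two-sided exact permutation test p = 0.0057), and 11.4 ± 4.09% in NZO without NZO 8 (n = 7, exact permutation p = 0.0047). Among the libraries numbered 1 to 4 the share was 6.79 to 16.04% in NZO and 1.46 to 6.19% in NOD, and among those numbered 5 to 8 it was 6.05 to 13.8% in NZO and 4.65 to 9.48% in NOD, so the strains overlapped only among the libraries of low Xist. Leaving that gene out of the counts gave 5294 called genes. The mitochondrial share was 6.41 ± 0.934% in NZO and 6.45 ± 0.561% in NOD (SD, n = 8 each, exact permutation p = 0.91).

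With all libraries, 5289 genes differed between NZO and NOD at an adjusted p under 0.05 in edgeR's quasi-likelihood test, which is 32.7% of the genes tested. Of these, 2805 were higher in NZO (17.4%) and 2484 lower (15.4%). Without NZO 8, 4840 of 16128 genes were called (30.0%), 2391 higher (14.8%) and 2449 lower (15.2%). The median log2 fold change (NZO over NOD) over all genes tested was 0.0001 with all libraries and -0.0142 without NZO 8. Both fits called 4481 genes in the same direction and 1 in opposite directions, 807 genes were called only with NZO 8, and 358 only without it. Genes at least 2-fold apart (log2 fold change of 1 or more) numbered 1364 higher and 768 lower in NZO, and 1010 higher and 774 lower without NZO 8. Every NZO library lay above every NOD library for 644 genes and below every NOD library for 722 genes.

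**Figure D1:**
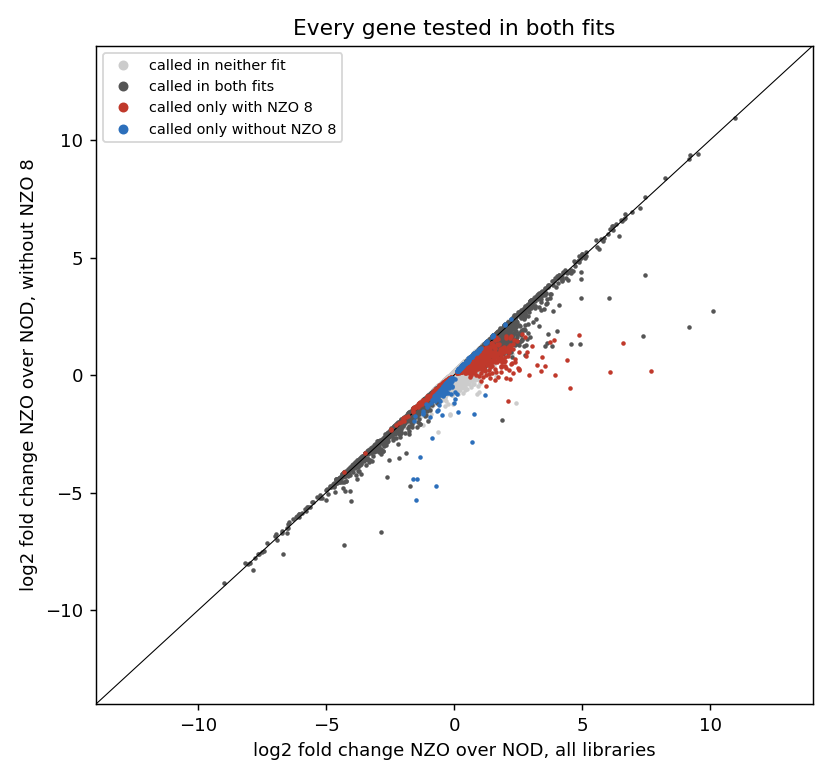
Each point is 1 gene tested in both fits, with its log2 fold change, NZO over NOD, from all libraries on the x axis and without NZO 8 on the y axis, and the line marks where both are equal. The 807 genes called only with NZO 8 lie mostly below the line at positive values, and the 358 called only without it lie near or below the line.

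The libraries of high and low Xist gave different numbers of calls. Among libraries 1 to 4, 14544 genes were tested, of which 2497 were higher (17.2%) and 2467 lower (17.0%) in NZO. Among libraries 5 to 8, 14096 were tested, of which 1636 were higher (11.6%) and 1295 lower (9.19%). This set holds NZO 8, and without that library it gave 2151 higher and 1786 lower of 14271 tested. Counts of gene lists for libraries 5 to 8 are given below with NZO 8 included. With the Xist level as a covariate over all 60 libraries, 3105 genes were higher (19.2%) and 2700 lower (16.7%). A direct test of whether the strain difference changed with Xist called 696 genes (4.31%), and 345 without NZO 8 (2.14%). Its estimate, called the interaction, is the log2 fold change (NZO over NOD) at the highest Xist level minus that at the lowest.

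**Figure D2:**
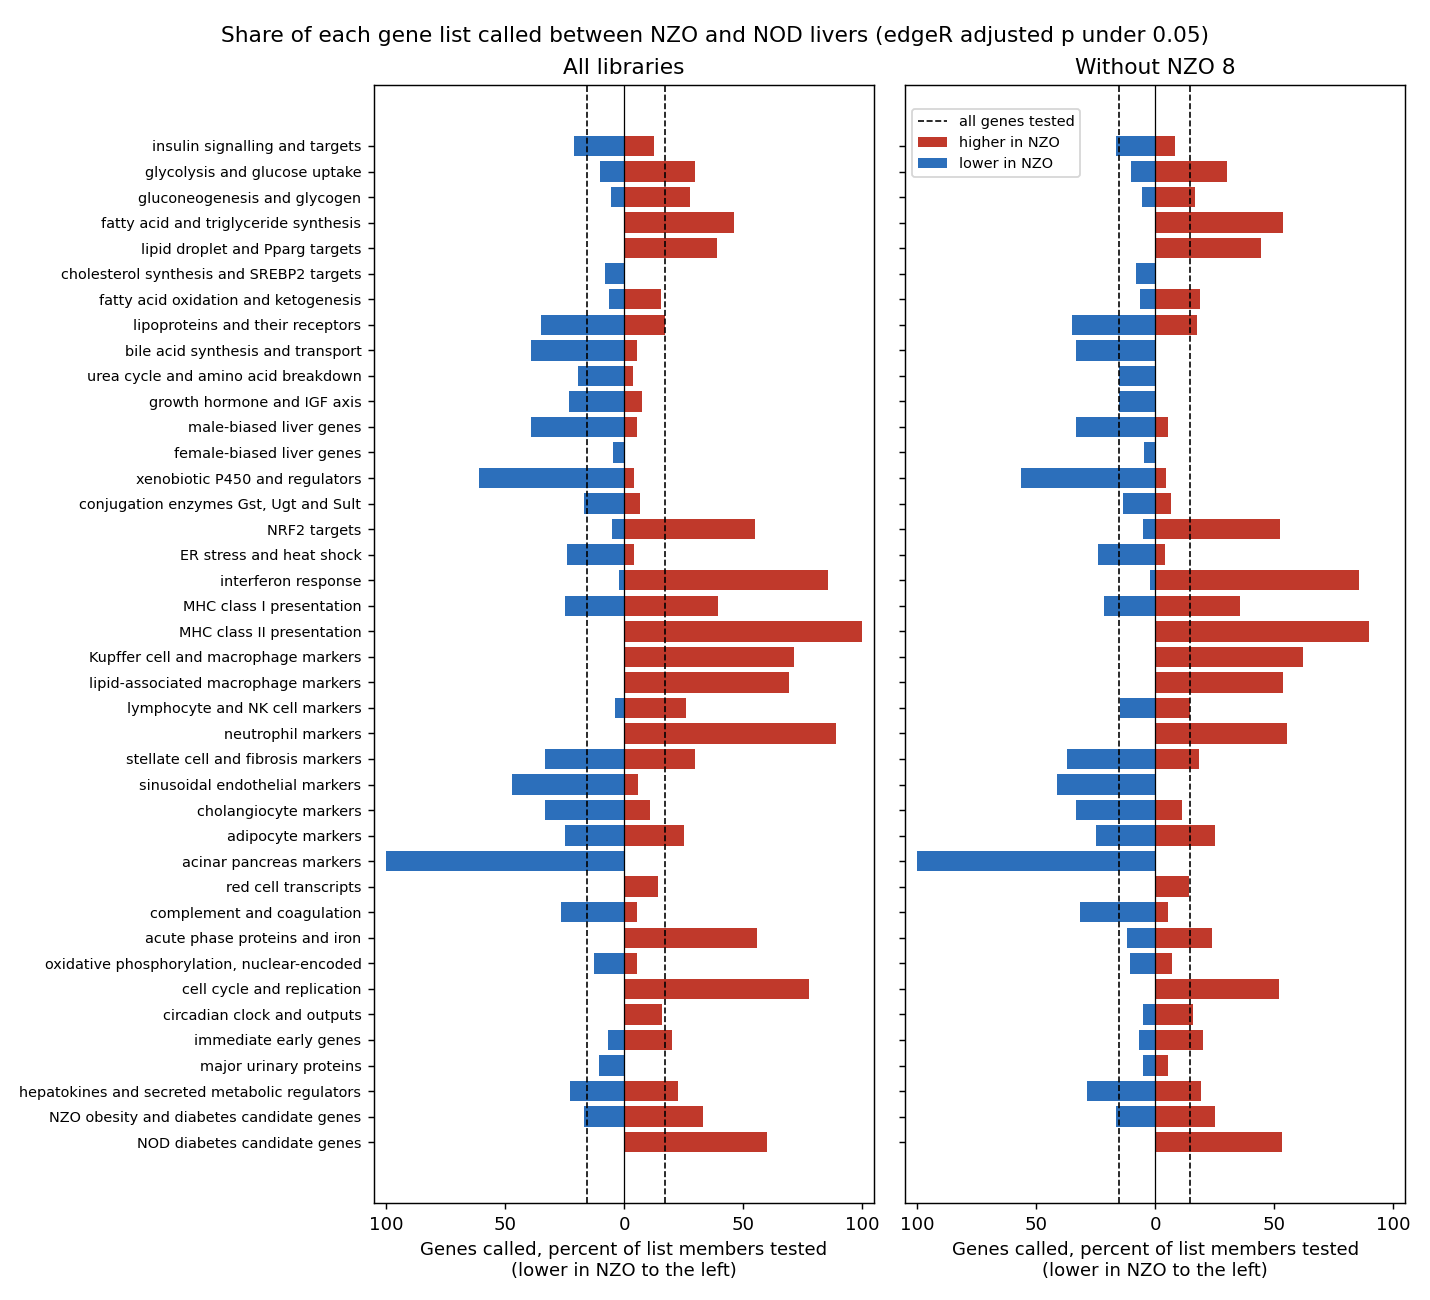
For each of the gene lists, bars give the percent of tested members called higher in NZO (right) and lower in NZO (left), with all libraries in the left panel and without NZO 8 in the right panel, and dashed lines give the same percent over all genes tested (17.4 and 15.4 with all libraries, 14.8 and 15.2 without NZO 8). Interferon, MHC class II, macrophage and cell cycle lists reach far to the right in both panels, and the P450 list far to the left. The acinar pancreas bar stands for 1 tested gene.

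Among protein-coding genes of at least 5 CPM in the higher strain, the largest positive differences were of 2 kinds. Genes of 1 kind were higher in every NZO library than in any NOD library. Akr1c18 (ENSMUSG00000021214, chr13:4132615-4150654), which encodes a hydroxysteroid dehydrogenase that inactivates progesterone, had 9.26 to 119.5 CPM (median 87.4) in NZO against 0 to 0.485 CPM (median 0.0658) in NOD. A4gnt, a Golgi glycosyltransferase, had 25.7 to 94.3 CPM (median 74.5) in NZO against 0 to 1.07 CPM (median 0.1001) in NOD. Abcb1b, a multidrug efflux pump, had 9.86 to 61.5 CPM (median 40.4) in NZO against 0.0913 to 0.51998 CPM (median 0.133) in NOD, and Ctse, the protease cathepsin E, had 8.87 to 44.04 CPM (median 30.8) in NZO against 0.193 to 0.444 CPM (median 0.335) in NOD. Fam19a2, a secreted protein of the TAFA family, had 0.196 to 10.6 CPM (median 5.33) in NZO against 0 to 0.162 CPM (median 0.0632) in NOD, and its means over libraries 1 to 4 and 5 to 8 were 9.47 and 1.298 CPM in NZO, against 0.0446 and 0.09798 CPM in NOD. For all of these, every NZO library lay above every NOD library, and the log2 fold changes were Akr1c18 (9.22, 9.38 without NZO 8), A4gnt (8.24, 8.36 without NZO 8), Abcb1b (7.47, 7.59 without NZO 8), Ctse (6.5, 6.61 without NZO 8) and Fam19a2 (6.2, 6.36 without NZO 8).

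Genes of the other kind were high in NZO 8. They encode granule and alarm proteins of neutrophils and their precursors (Ngp, Ltf, Prtn3, S100a8, S100a9, Retnlg) and the protease inhibitor A2m. Ngp had 0.0459 to 566 CPM (median 0.5396) in NZO against 0.0275 to 0.161 CPM (median 0.04304) in NOD, and its log2 fold change was Ngp (10.11, 2.72 without NZO 8). For Ltf, Prtn3 and S100a9 the log2 fold changes were Ltf (9.18, 2.07 without NZO 8), Prtn3 (7.47, 4.26 without NZO 8) and S100a9 (7.39, 1.65 without NZO 8), called in both fits. The calls of A2m, Retnlg and S100a8 were lost without NZO 8, with log2 fold changes of A2m (7.7, 0.16 without NZO 8), Retnlg (6.59, 1.36 without NZO 8) and S100a8 (6.07, 0.12 without NZO 8) and adjusted p = 0.89, 0.22 and 0.91 in that order without it. Among libraries 1 to 4 the log2 fold change of S100a8 was -0.28.

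In most of the largest negative differences the groups did not overlap. Gstm3 (ENSMUSG00000004038, chr3:107963696-107969283), a glutathione transferase, had 0.0948 to 1.19 CPM (median 0.835) in NZO against 33.6 to 805 CPM (median 56.6) in NOD. NOD 1 and NOD 2 had 805 and 697 CPM of Gstm3, and the other NOD livers 33.6 to 59.7 CPM. Camk2b, a subunit of a calcium-dependent kinase, had 0.0625 to 0.505 CPM (median 0.189) in NZO against 24.7 to 54.9 CPM (median 33.6) in NOD, and Adrb3, the beta-3 adrenergic receptor, had 0 to 0.129 CPM (median 0.0484) in NZO against 0.183 to 12.2 CPM (median 6.83) in NOD. Ceacam2, a cell adhesion molecule, had 0.0632 to 0.907 CPM (median 0.719) in NZO against 42.6 to 55.4 CPM (median 47.99) in NOD. In these and in Btnl9, a butyrophilin-like membrane protein, H2-Q1, a class Ib MHC gene, and Lrit1, a leucine-rich repeat protein, every NZO library lay below every NOD library. The log2 fold changes were Gstm3 (-8.17, -8.01 without NZO 8), Camk2b (-7.43, -7.48 without NZO 8), H2-Q1 (-6.94, -6.78 without NZO 8), Adrb3 (-6.93, -7.0 without NZO 8), Btnl9 (-6.68, -7.59 without NZO 8), Ceacam2 (-6.28, -6.12 without NZO 8) and Lrit1 (-6.13, -5.98 without NZO 8). Gstm3, Ceacam2 and H2-Q1 belong to families of near-identical genes, so their reads may be shared with relatives.

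The other genes of the largest negative differences also varied within a strain. Selenbp2, a selenium-binding protein (-5.16), Mup20, a major urinary protein (-5.0), and Cyp2c55, a P450 (-4.62), had overlapping groups. Cyp2c55 was at 80.1 and 60.0 CPM in NOD 1 and NOD 2, and at 0.589 to 1.51 CPM in the other NOD livers. Myh2, a skeletal muscle myosin, was called lower (-4.74, adjusted p = 0.002), but its medians were 0.290 CPM in NZO and 0.212 CPM in NOD, and the call was lost without NOD 1, with an adjusted p of up to 0.56. Among libraries 5 to 8 without NZO 8 its log2 fold change was 0.65.

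Of the insulin signalling and target genes, 3 of the 24 genes tested were higher and 5 lower in NZO, and 2 and 4 of 24 without NZO 8. Across all genes tested, 17.4% were higher and 15.4% lower. Over insulin genes the median log2 fold change was -0.09, and -0.14 without NZO 8. The clearest was Igfbp2 (ENSMUSG00000039323, chr1:72824503-72852474), an IGF-binding protein secreted by the liver. It had 19.03 to 49.04 CPM (median 26.4) in NZO against 123 to 217 CPM (median 169) in NOD, and every NZO library lay below every NOD library. For Igfbp2 the log2 fold change was -2.48 ± 0.25 (adjusted p = 6.9e-12), and -2.47 without NZO 8 (adjusted p = 7.6e-11). In the other 6 strains its means were 190.4 CPM (B6) to 671 CPM (Cast). Irs2, the insulin receptor substrate that insulin represses in liver, had 20.7 to 103 CPM (median 25.8) in NZO against 34.4 to 113 CPM (median 72.1) in NOD. 7 of 8 NZO libraries lay below every NOD library (log2 fold change -1.06 ± 0.39 (adjusted p = 0.031), and -1.54 without NZO 8 (adjusted p = 0.0015)), and the remaining one was NZO 8. The call was lost without NZO 1, NZO 2, NZO 3, NZO 4, NZO 5, NZO 6, NZO 7, NOD 4 or NOD 8, with an adjusted p of up to 0.068. Enho, which encodes the secreted peptide adropin, was at 0.275 to 27.5 CPM (median 1.397) in NZO against 13.3 to 31.9 CPM (median 24.2) in NOD, with 7 of 8 NZO libraries below every NOD library. The Enho log2 fold change was -2.15 ± 0.51 (adjusted p = 6.7e-04), and -3.51 without NZO 8 (adjusted p = 1.2e-08).

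Further insulin genes changed less. Irs1, the other main receptor substrate, was lower (log2 fold change -0.46 ± 0.16 (adjusted p = 0.024), and -0.38 without NZO 8 (adjusted p = 0.068)), and Foxo1, the transcription factor restrained by insulin, was lower too (log2 fold change -0.6 ± 0.2 (adjusted p = 0.018), and -0.73 without NZO 8 (adjusted p = 0.0052)), with its call lost without NOD 4, with an adjusted p of up to 0.10. Ptpn1, the phosphatase that dephosphorylates the insulin receptor, was higher (log2 fold change 0.73 ± 0.16 (adjusted p = 2.4e-04), and 0.45 without NZO 8 (adjusted p = 0.0043)), as was Grb10, an adaptor that inhibits the receptor (log2 fold change 0.87 ± 0.29 (adjusted p = 0.017), and 0.86 without NZO 8 (adjusted p = 0.026)). The means of Grb10 over libraries 1 to 4 and 5 to 8 were 13.6 and 6.18 CPM in NZO, against 5.86 and 4.99 CPM in NOD, and among libraries 5 to 8 without NZO 8 its log2 fold change was -0.006. Socs3, a cytokine-induced inhibitor of signalling, was called higher only with NZO 8 (log2 fold change 1.36 ± 0.48 (adjusted p = 0.023), and 0.53 without NZO 8 (adjusted p = 0.38)). The insulin receptor Insr was at 162 to 218 CPM (median 193) in NZO against 169.8 to 232 CPM (median 199) in NOD, and was not called (-0.06, adjusted p = 0.53), nor was Igfbp1 (-0.5, adjusted p = 0.51).

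Genes of glucose use and production did not move as 1 group. Of glycolysis and glucose uptake genes, 6 of the 20 genes tested were higher and 2 lower in NZO, and 6 and 2 of 20 without NZO 8. Over glycolysis genes the median log2 fold change was 0.12, and 0.08 without NZO 8. Gpi1, the glucose-6-phosphate isomerase, had 201 to 323 CPM (median 246) in NZO against 111 to 143 CPM (median 119) in NOD, with every NZO library above every NOD library. For Gpi1 the log2 fold change was 1.04 ± 0.16 (adjusted p = 5.9e-07), and 1.06 without NZO 8 (adjusted p = 7.1e-07). The enolase Eno1 and Gapdh were higher as well (Eno1 (0.62) and Gapdh (0.47)). Pgk1, the glycolytic kinase between them, went the other way. It had 91.9 to 136 CPM (median 118) in NZO against 209 to 275 CPM (median 257) in NOD, without overlap. The Pgk1 log2 fold change was -1.12 ± 0.09 (adjusted p = 9.3e-15), and -1.08 without NZO 8 (adjusted p = 6.1e-14). Pdk1, which inhibits pyruvate dehydrogenase, was also lower in every NZO library (-1.06). The transporter Slc2a2 and the liver pyruvate kinase Pklr were not called (log2 fold changes Slc2a2 (-0.15) and Pklr (-0.2)).

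In the gluconeogenesis and glycogen list, 5 of the 18 genes tested were higher and 1 lower in NZO, and 3 and 1 of 18 without NZO 8. Over gluconeogenesis genes the median log2 fold change was 0.07, and 0.03 without NZO 8. Pck1 (ENSMUSG00000027513, chr2:173153048-173159273), the cytosolic PEP carboxykinase and main insulin-repressed enzyme of the pathway, had 1271 to 2549.97 CPM (median 1932) in NZO against 1655 to 4805 CPM (median 3258) in NOD. For Pck1 the log2 fold change was -0.75 ± 0.21 (adjusted p = 0.0049), and -0.8 without NZO 8 (adjusted p = 0.0048). G6pc, the glucose-6-phosphatase that releases glucose, was at 372 to 976 CPM (median 524) in NZO against 448 to 1389.5 CPM (median 823) in NOD, and was not called (-0.64, adjusted p = 0.057), but was called lower with Xist as a covariate (-0.67, adjusted p = 0.043). Fbp1, the fructose bisphosphatase, had 890.2 to 1458 CPM (median 1067) in NZO against 506 to 703 CPM (median 571) in NOD, without overlap, and Pcx, the pyruvate carboxylase, was higher in every NZO library (0.43). The Fbp1 log2 fold change was 0.93 ± 0.17 (adjusted p = 2.7e-05), and 0.9 without NZO 8 (adjusted p = 8.4e-05). Pck2, the mitochondrial PEP carboxykinase, was called higher only with NZO 8 (log2 fold change 0.62 ± 0.2 (adjusted p = 0.011), and 0.3 without NZO 8 (adjusted p = 0.18)). The number of members called higher ran from 3 to 5 with 1 library left out, and moved over 1.5 times without NZO 2, NZO 8, NOD 2, NOD 3 or NOD 4, and the number lower ran from 1 to 3, moving without NZO 6, NZO 7, NOD 1, NOD 5 or NOD 6.

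The genes of lipid synthesis that were called were all higher in NZO. Of the fatty acid and triglyceride synthesis list, 12 of the 26 genes tested were higher and 0 lower in NZO, and 14 and 0 of 26 without NZO 8. Over lipid synthesis genes the median log2 fold change was 0.86, and 0.94 without NZO 8. Scd1 (ENSMUSG00000037071, chr19:44394451-44407709), the stearoyl-CoA desaturase that makes monounsaturated fatty acids, had 404 to 46601 CPM (median 39092) in NZO against 3054 to 13005 CPM (median 5516) in NOD. The lowest NZO value was that of NZO 8, and the other NZO livers had 11956 to 46601 CPM; 6 of 8 NZO libraries lay above every NOD library (log2 fold change 2.35 ± 0.46 (adjusted p = 5.5e-05), and 2.53 without NZO 8 (adjusted p = 6.0e-07)). In the other 6 strains the means of Scd1 were 4383 CPM (WSB) to 16905 CPM (B6). Fasn (ENSMUSG00000025153, chr11:120805846-120824547), the fatty acid synthase, had 147 to 5763 CPM (median 3625) in NZO against 428 to 1026 CPM (median 676) in NOD. The groups overlapped, with 5 of 8 NZO libraries above and 2 below every NOD library (log2 fold change 2.09 ± 0.45 (adjusted p = 1.9e-04), and 2.26 without NZO 8 (adjusted p = 1.6e-05)).

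Acaca, the acetyl-CoA carboxylase that commits acetyl-CoA to fatty acid synthesis, was higher (log2 fold change 1.62 ± 0.33 (adjusted p = 9.3e-05), and 1.77 without NZO 8 (adjusted p = 9.2e-06)). Pnpla3, a lipid droplet acyl hydrolase regulated by SREBP-1c, was at 1.11 to 297 CPM (median 101) in NZO against 1.53 to 26.02 CPM (median 4.304) in NOD. For Pnpla3 the log2 fold change was 3.83 ± 0.85 (adjusted p = 3.1e-04), and 4.01 without NZO 8 (adjusted p = 1.1e-04). The acyltransferase Mogat1 (ENSMUSG00000012187, chr1:78510991-78538173), which makes diacylglycerol from monoacylglycerol, had 1.45 to 23.5 CPM (median 15.6) in NZO against 0.0403 to 1.28 CPM (median 0.336) in NOD. Every NZO library lay above every NOD library, with NZO 8 the lowest of NZO (log2 fold change 5.0 ± 0.64 (adjusted p = 9.3e-09), and 5.17 without NZO 8 (adjusted p = 1.3e-09)). Srebf1, which encodes SREBP-1c, was at 112 to 371 CPM (median 287) in NZO against 153 to 274 CPM (median 206) in NOD, and was not called (0.37, adjusted p = 0.32). Split by number, the list gave 20 higher and 0 lower of 26 among libraries 1 to 4. Among libraries 5 to 8, which include NZO 8, it gave 1 and 0 of 25. The interaction with Xist was not called for Scd1, Fasn, Pnpla3 or Mogat1 (adjusted p = 0.75, 0.40, 0.96 and 0.84 in that order), and was called for Acaca (interaction 2.25, adjusted p = 0.042; without NZO 8 1.9, adjusted p = 0.12).

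**Figure D3:**
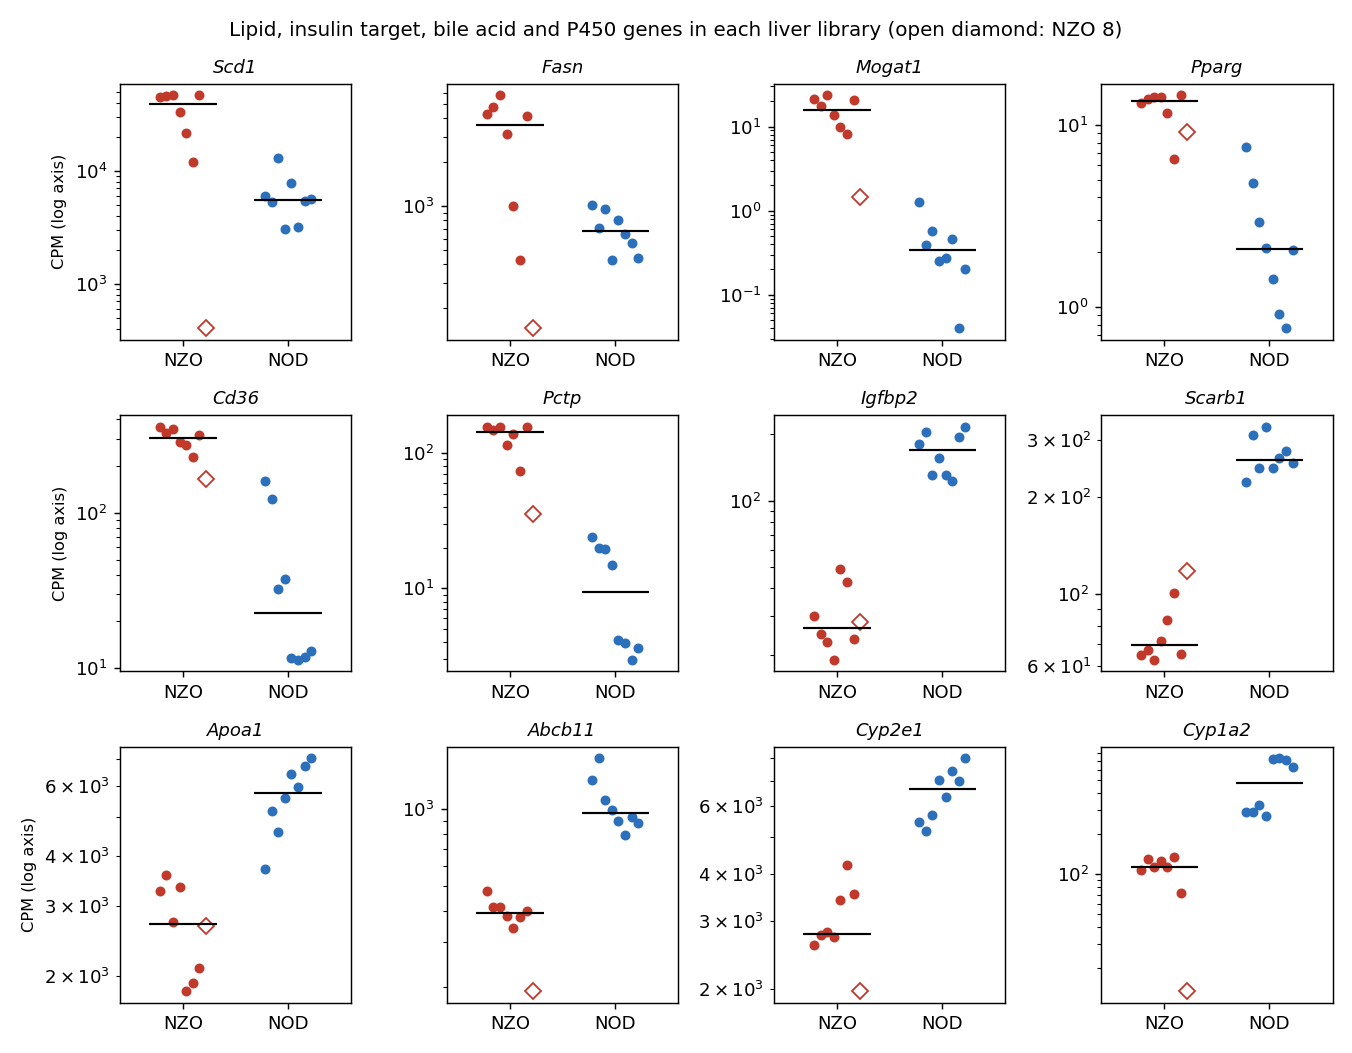
Each panel gives CPM on a log axis for 1 gene, with NZO libraries (red) left of NOD libraries (blue), the open diamond for NZO 8 and a line at the median of the 8 libraries. Scd1 and Fasn are higher in most NZO livers but lowest in NZO 8, while Igfbp2, Scarb1, Apoa1, Abcb11, Cyp2e1 and Cyp1a2 are lower in all 8 NZO livers than in any NOD liver.

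Of lipid droplet genes and targets of PPAR-gamma, 7 of the 18 genes tested were higher and 0 lower in NZO, and 8 and 0 of 18 without NZO 8. Over droplet genes the median log2 fold change was 0.41, and 0.52 without NZO 8. Pparg (ENSMUSG00000000440, chr6:115360951-115490399), the adipogenic nuclear receptor that is low in lean liver, had 6.48 to 14.6 CPM (median 13.5) in NZO against 0.766 to 7.57 CPM (median 2.08) in NOD. 7 of 8 NZO libraries lay above every NOD library (log2 fold change 2.09 ± 0.39 (adjusted p = 2.4e-05), and 2.13 without NZO 8 (adjusted p = 2.7e-05)), and the means of the other 6 strains were 0.2303 CPM (PWK) to 11.8 CPM (B6). Cd36 (ENSMUSG00000002944, chr5:17781690-17888801), a fatty acid translocase and PPAR-gamma target, had 165 to 358 CPM (median 302) in NZO against 11.4 to 161 CPM (median 22.7) in NOD, without overlap. The Cd36 log2 fold change was 2.51 ± 0.5 (adjusted p = 6.8e-05), and 2.6 without NZO 8 (adjusted p = 6.9e-05). Its means over libraries 1 to 4 and 5 to 8 were 329 and 246 CPM in NZO, against 88.5 and 11.9 CPM in NOD, and its strain difference changed with Xist (interaction -3.4, adjusted p = 0.0014; without NZO 8 -3.58, adjusted p = 0.001).

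The fat-droplet fusion protein Cidec was at 0.632 to 22.96 CPM (median 6.21) in NZO against 1.41 to 4.83 CPM (median 1.78) in NOD, but the call was lost without NZO 3, NZO 5, NZO 7, NOD 3, NOD 4, NOD 5, NOD 6, NOD 7 or NOD 8, with an adjusted p of up to 0.12. For Cidec the log2 fold change was 1.81 ± 0.69 (adjusted p = 0.036), and 1.99 without NZO 8 (adjusted p = 0.022). Hsd17b13, an enzyme of the lipid droplet surface, and Fabp4, an adipocyte and macrophage fatty acid binding protein, were higher (log2 fold changes Hsd17b13 (0.58, 0.64 without NZO 8) and Fabp4 (0.63, 0.54 without NZO 8)). The droplet coat protein Plin2 was at 308 to 916 CPM (median 697) in NZO against 386 to 594 CPM (median 495) in NOD, and was not called (0.41, adjusted p = 0.20). Of the adipocyte markers, Adipoq, Lep, Plin1 and Retn had no row in the table. The 4 others tested gave 1 higher and 1 lower of 4 with all libraries, 1 and 1 of 4 without NZO 8, and the lower one was Tusc5 (-1.5), a protein of fat cells, at a median of 0.0767 CPM in NZO and 0.354 CPM in NOD. Their part in the lipid results was not tested.

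Cholesterol synthesis genes were mostly not called: 0 of the 25 genes tested were higher and 2 lower in NZO, and 0 and 2 of 25 without NZO 8. Over cholesterol genes the median log2 fold change was 0.04, and 0.14 without NZO 8. The lower ones were Hmgcs1, the HMG-CoA synthase (log2 fold change -1.01 ± 0.35 (adjusted p = 0.019), and -0.95 without NZO 8 (adjusted p = 0.039)), whose call was lost without NOD 1 or NOD 2, with an adjusted p of up to 0.10, and the sterol isomerase Ebp (-0.32, adjusted p = 0.018), whose call was lost without NOD 3, with an adjusted p of up to 0.058. The squalene epoxidase Sqle was not called (0.98, adjusted p = 0.27). The counts of the list moved over 1.5 times without NZO 6, NOD 1 or NOD 2 for members higher (0 to 2) and without NOD 1, NOD 2 or NOD 3 for members lower (1 to 2).

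Fatty acid oxidation and ketogenesis genes gave 5 higher and 2 lower of 32 with all libraries, 6 and 2 of 32 without NZO 8 (median log2 fold change 0.07, and 0.14 without NZO 8). With all libraries, 17.4% of all genes tested were higher and 15.4% lower. Vnn1, a pantetheinase and PPAR-alpha target, had 54.4 to 182 CPM (median 129.7) in NZO against 2.62 to 23.5 CPM (median 10.4) in NOD, without overlap. The Vnn1 log2 fold change was 3.57 ± 0.65 (adjusted p = 1.6e-05), and 3.66 without NZO 8 (adjusted p = 1.7e-05). Cyp4a14, a fatty acid omega-hydroxylase also under PPAR-alpha, had 36.4 to 1029 CPM (median 543) in NZO against 4.48 to 282 CPM (median 29.7) in NOD, and its call was lost without NOD 5, NOD 6, NOD 7 or NOD 8, with an adjusted p of up to 0.052. For Cyp4a14 the log2 fold change was 3.01 ± 1.09 (adjusted p = 0.028), and 3.19 without NZO 8 (adjusted p = 0.023). The carnitine carrier Slc25a20 was slightly higher (log2 fold change 0.33), and its call was lost without NZO 7 or NOD 5, with an adjusted p of up to 0.066. Creb3l3, a transcription factor of triglyceride handling, and Angptl4, an inhibitor of lipoprotein lipase, were lower (Creb3l3 (-0.46, -0.51 without NZO 8) and Angptl4 (-0.87, -0.86 without NZO 8)). Ppara, the nuclear receptor, and Cpt1a, the entry enzyme of mitochondrial oxidation, were not called (Ppara (-0.24) and Cpt1a (0.36)), though Cpt1a was called higher with Xist as a covariate (0.37, adjusted p = 0.044). The number of list members higher ran from 2 to 6 and moved over 1.5 times without NZO 7, NOD 5, NOD 6, NOD 7 or NOD 8.

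Several genes of high-density lipoprotein were lower in NZO. Of lipoproteins and their receptors, 4 of the 23 genes tested were higher and 8 lower in NZO, and 4 and 8 of 23 without NZO 8. Over lipoprotein genes the median log2 fold change was -0.22, and -0.23 without NZO 8. Scarb1 (ENSMUSG00000037936, chr5:125277087-125341094), the receptor that takes up cholesterol from high-density lipoprotein, had 62.9 to 118 CPM (median 69.6) in NZO against 222 to 329.9 CPM (median 259.95) in NOD. All 8 NZO libraries were below every NOD library (log2 fold change -1.76 ± 0.17 (adjusted p = 1.3e-12), and -1.87 without NZO 8 (adjusted p = 5.8e-13)), and the means of the other 6 strains were 168 CPM (B6) to 279 CPM (strain-129). Apoa1 (ENSMUSG00000032083, chr9:46228580-46230466), the main protein of these particles, had 1838 to 3579 CPM (median 2707) in NZO against 3718 to 7022 CPM (median 5754) in NOD, also without overlap. The Apoa1 log2 fold change was -1.07 ± 0.15 (adjusted p = 5.9e-08), and -1.08 without NZO 8 (adjusted p = 1.7e-07). Lipc, the hepatic lipase, was lower in every NZO library (log2 fold change -1.29 ± 0.23 (adjusted p = 9.6e-06), and -1.19 without NZO 8 (adjusted p = 4.3e-05)), and Abcg5, a subunit of the biliary sterol exporter, was lower with overlap (log2 fold change -0.96 ± 0.27 (adjusted p = 0.0049), and -0.87 without NZO 8 (adjusted p = 0.015)).

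Among the members higher in NZO, Vldlr, a receptor for triglyceride-rich particles that is low in normal liver, had 4.83 to 48.9 CPM (median 34.3) in NZO against 0.6398 to 16.9 CPM (median 2.07) in NOD, with 7 of 8 NZO libraries above every NOD library. For Vldlr the log2 fold change was 2.84 ± 0.66 (adjusted p = 6.2e-04), and 2.99 without NZO 8 (adjusted p = 3.5e-04). Pctp (ENSMUSG00000020553, chr11:89982665-90002894), the phosphatidylcholine transfer protein, was at 35.5 to 156 CPM (median 144) in NZO against 2.98 to 23.8 CPM (median 9.44) in NOD, without overlap. The Pctp log2 fold change was 3.39 ± 0.43 (adjusted p = 6.4e-09), and 3.52 without NZO 8 (adjusted p = 2.2e-09). The means of Pctp over libraries 1 to 4 and 5 to 8 were 143 and 101 CPM in NZO, against 19.5 and 3.67 CPM in NOD, and its difference changed with Xist (interaction -2.69, adjusted p = 0.0067; without NZO 8 -3.03, adjusted p = 0.001). Apob, the protein of very-low-density lipoprotein, was at 9237 to 12007 CPM (median 10958) in NZO against 8674 to 11987 CPM (median 11123) in NOD and was not called (0.03, adjusted p = 0.87), nor were Apoa4 (0.86, adjusted p = 0.067) and Lpl (-0.28, adjusted p = 0.46). With Xist as a covariate Apoa4 was called higher (0.95, adjusted p = 0.037).

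More bile acid genes were lower than higher in NZO: 1 of the 18 genes tested was higher and 7 lower in NZO, and 0 and 6 of 18 without NZO 8. Over bile acid genes the median log2 fold change was -0.2, and -0.16 without NZO 8. Abcb11 (ENSMUSG00000027048, chr2:69238282-69342616), the bile salt export pump, had 193 to 476 CPM (median 391) in NZO against 788 to 1583 CPM (median 962) in NOD, without overlap. For Abcb11 the log2 fold change was -1.5 ± 0.23 (adjusted p = 7.9e-07), and -1.41 without NZO 8 (adjusted p = 4.1e-06). The FXR target Nr0b2, a repressor of bile acid synthesis, was lower, while Cyp7a1, the rate-limiting enzyme, was at 19.7 to 64.4 CPM (median 55.7) in NZO against 11.4 to 91.2 CPM (median 30.9) in NOD and not called (0.41, adjusted p = 0.57). The Nr0b2 log2 fold change was -1.13 ± 0.32 (adjusted p = 0.005), and -1.03 without NZO 8 (adjusted p = 0.014). Cyp7b1 and Hsd3b7, of the alternative and common synthesis steps, and the uptake carrier Slco1a1 were lower (log2 fold changes Cyp7b1 (-3.38, -3.28 without NZO 8), Hsd3b7 (-0.58, -0.54 without NZO 8) and Slco1a1 (-3.49, -3.31 without NZO 8)). Slco1a1 had 3.76 to 275 CPM (median 6.31) in NZO against 252 to 1279 CPM (median 805) in NOD, and 7 of 8 NZO libraries lay below every NOD library. Cyp8b1, the sterol 12-alpha-hydroxylase, was not called (-0.75, adjusted p = 0.11). Nr1h4, which encodes FXR, was called higher (log2 fold change 0.32 ± 0.12 (adjusted p = 0.034), and 0.26 without NZO 8 (adjusted p = 0.11)), but the call was lost without NZO 5, NZO 8, NOD 1, NOD 4 or NOD 6, with an adjusted p of up to 0.11. The number of members higher ran from 0 to 2 and moved over 1.5 times without NZO 5, NZO 6, NZO 8, NOD 1, NOD 2, NOD 4 or NOD 6.

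Of urea cycle and amino acid breakdown genes, 1 of the 26 genes tested was higher and 5 lower in NZO, and 0 and 4 of 26 without NZO 8. Among all genes tested, 17.4% were higher and 15.4% lower. Over urea cycle genes the median log2 fold change was -0.2, and -0.17 without NZO 8. The list split by number, with 1 higher and 17 lower of 25 among libraries 1 to 4 (median log2 fold change -0.39). Of all genes tested there, 17.2% were higher and 17.0% lower. Among libraries 5 to 8, which include NZO 8, it gave 4 and 1 of 26 (median 0.155), against 11.6% and 9.19% of all genes tested. Cps1, the entry enzyme of the urea cycle, had 2172 to 5647 CPM (median 3011) in NZO against 4021 to 6294 CPM (median 4845) in NOD, and Hpd and Fah of tyrosine breakdown were lower (log2 fold changes Hpd (-0.85, -0.8 without NZO 8) and Fah (-0.33, -0.29 without NZO 8)). For Cps1 the log2 fold change was -0.6 ± 0.19 (adjusted p = 0.0099), and -0.54 without NZO 8 (adjusted p = 0.029). Ass1 (-0.36, adjusted p = 0.19), the tyrosine aminotransferase Tat (-0.33, adjusted p = 0.41) and the serine dehydratase Sds (0.1, adjusted p = 0.85) were not called. The higher member was Asns, the asparagine synthetase, called with NZO 8 but not without it (log2 fold change 3.05 ± 0.73 (adjusted p = 7.9e-04), and 1.23 without NZO 8 (adjusted p = 0.14)).

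Growth hormone pathway genes gave 1 higher and 3 lower of 13 with all libraries, 0 and 2 of 13 without NZO 8 (median log2 fold change -0.16, and -0.17 without NZO 8). The share of all genes tested was 17.4% higher and 15.4% lower. Stat5b, the signal transducer of growth hormone in male liver, had 57.1 to 88.5 CPM (median 66.7) in NZO against 91.1 to 113 CPM (median 100.1) in NOD, and every NZO library was below every NOD library. The Stat5b log2 fold change was -0.57 ± 0.12 (adjusted p = 1.4e-04), and -0.57 without NZO 8 (adjusted p = 3.0e-04). Igfals, which carries circulating IGF1, was also lower without overlap (log2 fold change -0.99 ± 0.35 (adjusted p = 0.023), and -0.98 without NZO 8 (adjusted p = 0.035)). The receptor Ghr was called lower (log2 fold change -0.51 ± 0.2 (adjusted p = 0.042), and -0.45 without NZO 8 (adjusted p = 0.089)), but the call was lost without NZO 1, NZO 2, NZO 3, NZO 4, NZO 5, NZO 8, NOD 5, NOD 6, NOD 7 or NOD 8, with an adjusted p of up to 0.089. Jak2, the kinase of that receptor, was called higher (0.18, adjusted p = 0.043), but the call was lost without NZO 1, NZO 3, NZO 4, NZO 8, NOD 3, NOD 4, NOD 5 or NOD 7, with an adjusted p of up to 0.11; it was the only member called higher. Igf1 itself was at 499 to 736 CPM (median 572) in NZO against 509 to 826 CPM (median 664) in NOD and was not called (-0.13, adjusted p = 0.63), nor were Socs2 (-0.41, adjusted p = 0.68) and Bcl6 (-1.24, adjusted p = 0.074), of which Bcl6 was called lower with Xist as a covariate (-1.14, adjusted p = 0.019).

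Genes known to differ between male and female mouse liver were taken as separate lists, since the strains were compared over libraries of both Xist classes. Of male-biased genes, 1 of the 18 genes tested was higher and 7 lower in NZO, and 1 and 6 of 18 without NZO 8. Over male-biased genes the median log2 fold change was -2.09, and -2.14 without NZO 8. By number, they gave 3 higher and 5 lower of 15 among libraries 1 to 4, and 1 and 12 of 17 among libraries 5 to 8. Serpina1e, an antitrypsin paralogue and the member higher, had 9.18 to 463 CPM (median 51.04) in NZO against 1.17 to 7.62 CPM (median 3.82) in NOD, without overlap, and shares reads with its family. For Serpina1e the log2 fold change was 4.84 ± 1.0 (adjusted p = 1.3e-04), and 4.84 without NZO 8 (adjusted p = 2.0e-04). Elovl3 was not called (-3.29, adjusted p = 0.076). Cyp2d9, a P450 of this list, was not called with strain as the only factor (-2.06, adjusted p = 0.16), and was called lower with Xist as a covariate (-2.89, adjusted p = 1.1e-05). Its means over libraries 1 to 4 and 5 to 8 were 8.84 and 454 CPM in NZO, against 103 and 1832 CPM in NOD, and within each of these sets every NZO library lay below every NOD library. Female-biased genes gave 0 higher and 1 lower of 22 with all libraries, 0 and 1 of 22 without NZO 8, against 9 higher and 1 lower with Xist as a covariate, and by number 6 higher and 6 lower of 22 among libraries 1 to 4, and 11 and 0 of 17 among libraries 5 to 8. Sult3a1, a sulfotransferase of this list, had means of 33.5 and 1.24 CPM in NZO, against 659 and 0.216 CPM in NOD over libraries 1 to 4 and 5 to 8, and its difference changed with Xist (interaction -10.33, adjusted p = 7.3e-06; without NZO 8 -9.58, adjusted p = 6.0e-05). The same held for A1bg, a plasma glycoprotein (interaction -6.56, adjusted p = 0.0029; without NZO 8 -6.88, adjusted p = 0.0014), which was not called with all libraries (1.45, adjusted p = 0.51) and was called higher with Xist as a covariate (4.55, adjusted p = 5.5e-05). Cyp2b9 (0.31, adjusted p = 0.88) and Cux2 (-1.0, adjusted p = 0.57) were not called.

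Of the major urinary proteins, 0 of the 19 genes tested were higher and 2 lower in NZO, and 1 and 1 of 19 without NZO 8. Over Mup genes the median log2 fold change was -0.54, and -0.39 without NZO 8. These paralogues share nearly all of their sequence, so the counts of single members are uncertain. Their summed level was 634 to 20875 CPM in NZO livers (median 1328), against 219.5 to 27537 CPM in NOD livers (median 12403). The strain difference of Mup20 changed with Xist (interaction 6.85, adjusted p = 0.0017; without NZO 8 6.37, adjusted p = 0.0043), and Mup21, called lower (log2 fold change -4.31 ± 1.65 (adjusted p = 0.037), and -4.13 without NZO 8 (adjusted p = 0.064)), lost its call without NZO 1, NZO 2, NZO 3, NZO 4, NZO 5, NZO 7, NZO 8, NOD 5, NOD 6, NOD 7 or NOD 8, with an adjusted p of up to 0.064, with a changing difference as well (interaction 7.76, adjusted p = 0.0041; without NZO 8 7.17, adjusted p = 0.0069). Mup3 was not called (-1.53, adjusted p = 0.092), but was called with Xist as a covariate (-1.17, adjusted p = 0.037). The number of members lower ran from 1 to 4 with 1 library left out.

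Most xenobiotic P450 genes were lower in NZO. Of that list, 1 of the 23 genes tested was higher and 14 lower in NZO, and 1 and 13 of 23 without NZO 8. By number it gave 1 higher and 21 lower of 22 among libraries 1 to 4. Among libraries 5 to 8, which include NZO 8, it gave 4 and 8 of 22. Over P450 genes the median log2 fold change was -1.12, and -1.04 without NZO 8. The summed level of the list was 4002 to 9369 CPM in NZO livers (median 7663), against 14553 to 30093 CPM in NOD livers (median 17330.4), so the groups did not overlap. Cyp1a2 (ENSMUSG00000032310, chr9:57676937-57683655), the main target of the aryl hydrocarbon receptor in liver, had 13.4 to 134 CPM (median 113) in NZO against 272 to 729 CPM (median 477) in NOD. The Cyp1a2 log2 fold change was -2.29 ± 0.45 (adjusted p = 6.2e-05), and -2.13 without NZO 8 (adjusted p = 1.7e-04). Cyp2e1 (ENSMUSG00000025479, chr7:140763739-140774975), the ethanol-oxidising P450 of the cells around the central vein, had 1974 to 4223 CPM (median 2786) in NZO against 5176 to 8006 CPM (median 6657) in NOD. For Cyp2e1 the log2 fold change was -1.12 ± 0.2 (adjusted p = 1.7e-05), and -1.05 without NZO 8 (adjusted p = 8.1e-05). Cyp3a11, the main drug-metabolising P450 of mouse liver, was at 56.9 to 1215 CPM (median 708) in NZO against 1934 to 15045 CPM (median 3232) in NOD, and Cyp2c29 was at 9.29 to 509 CPM (median 435) in NZO against 612 to 2450.4 CPM (median 1300.4) in NOD. The Cyp3a11 log2 fold change was -3.15 ± 0.63 (adjusted p = 7.9e-05), and -2.98 without NZO 8 (adjusted p = 2.2e-04). For Cyp2c29 the log2 fold change was -2.06 ± 0.48 (adjusted p = 5.6e-04), and -1.88 without NZO 8 (adjusted p = 6.7e-04).

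For all of these P450 genes every NZO library lay below every NOD library, and NZO 8 was the lowest for each. Cyp2b10, the main target of the receptor CAR, was lower with overlap (log2 fold change -4.29 ± 1.28 (adjusted p = 0.0071), and -4.12 without NZO 8 (adjusted p = 0.015)), and Cyp2d10 was lower with 7 of 8 NZO libraries below NOD (log2 fold change -1.15 ± 0.2 (adjusted p = 6.3e-06), and -1.11 without NZO 8 (adjusted p = 2.9e-05)). The member higher was Cyp3a13 (ENSMUSG00000029727, chr5:137892932-137921619), at 135 to 248 CPM (median 161) in NZO against 27.04 to 52.6 CPM (median 32.2) in NOD, without overlap, and its means in the other 6 strains were 33.1 CPM (AJ) to 238 CPM (Cast). The Cyp3a13 log2 fold change was 2.31 ± 0.23 (adjusted p = 2.8e-12), and 2.22 without NZO 8 (adjusted p = 1.8e-11). The Cyp2c, Cyp2d and Cyp3a genes lie in families of close relatives that can share reads.

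Of conjugation enzymes, 2 of the 30 genes tested were higher and 5 lower in NZO, and 2 and 4 of 30 without NZO 8. The shares over all genes tested were 17.4% higher and 15.4% lower. Over conjugation genes the median log2 fold change was -0.23, and -0.13 without NZO 8. Besides Gstm3, the glutathione transferases Gstm1, Gstm2 and Gstm6 were lower in every NZO library (log2 fold changes Gstm1 (-1.12, -0.96 without NZO 8), Gstm2 (-3.68, -3.6 without NZO 8) and Gstm6 (-3.86, -3.72 without NZO 8)), while Gstm4 was higher (log2 fold change 1.35 ± 0.27 (adjusted p = 6.1e-05), and 1.49 without NZO 8 (adjusted p = 4.6e-06)), and reads may be shared within this cluster of relatives. Sult1e1, the oestrogen sulfotransferase, had 8.62 to 87.03 CPM (median 25.3) in NZO against 0.323 to 3.63 CPM (median 0.953) in NOD, without overlap. For Sult1e1 the log2 fold change was 4.45 ± 0.53 (adjusted p = 1.3e-09), and 4.04 without NZO 8 (adjusted p = 6.6e-09). Gsta2 was not called (-0.75, adjusted p = 0.26). Targets of NRF2, the regulator of antioxidant genes, gave 11 higher and 1 lower of 20 with all libraries, 10 and 1 of 19 without NZO 8 (median log2 fold change 0.53, and 0.52 without NZO 8). Txnrd1, the thioredoxin reductase, was at 139 to 258 CPM (median 171) in NZO against 97.8 to 120.3 CPM (median 115) in NOD, without overlap, and the ketoreductase Akr1c13 and the pentose phosphate enzyme Pgd were higher (Akr1c13 (0.82, 0.92 without NZO 8) and Pgd (1.17, 1.18 without NZO 8)). The Txnrd1 log2 fold change was 0.66 ± 0.12 (adjusted p = 1.1e-05), and 0.69 without NZO 8 (adjusted p = 6.0e-06). Gclm, the modifier subunit of glutamate-cysteine ligase, was lower (log2 fold change -0.41 ± 0.08 (adjusted p = 8.8e-05), and -0.37 without NZO 8 (adjusted p = 4.1e-04)), its catalytic subunit Gclc was not called (0.09, adjusted p = 0.72), and Nqo1 was not called (0.6, adjusted p = 0.15) but was called higher with Xist as a covariate (0.85, adjusted p = 0.0074), and its strain difference changed with Xist (interaction -2.57, adjusted p = 0.0013; without NZO 8 -2.83, adjusted p = 2.6e-04).

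Most interferon response genes were higher in NZO. Of the list, 42 of the 49 genes tested were higher and 1 lower in NZO, and 42 and 1 of 49 without NZO 8, and by number it gave 42 higher and 1 lower of 49 among libraries 1 to 4, and 39 and 1 of 49 among libraries 5 to 8. Over interferon genes the median log2 fold change was 1.16, and 1.19 without NZO 8. With 1 library left out, the number higher ran from 38 to 43. The summed level of the list was 952 to 2002 CPM in NZO livers (median 1534), against 727 to 1195 CPM in NOD livers (median 892). The transcription factor Irf7 (ENSMUSG00000025498, chr7:141262706-141266481), a master regulator of the type I interferon response, had 18.4 to 44.4 CPM (median 40.5) in NZO against 7.18 to 22.4 CPM (median 11.2) in NOD, and 7 of 8 NZO libraries lay above every NOD library. For Irf7 the log2 fold change was 1.42 ± 0.27 (adjusted p = 4.0e-05), and 1.46 without NZO 8 (adjusted p = 4.3e-05).

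Among the effectors, Ifit1, which binds viral RNA lacking a host cap, was at 4.01 to 19.3 CPM (median 13.6) in NZO against 1.17 to 9.95 CPM (median 4.45) in NOD. The Ifit1 log2 fold change was 1.5 ± 0.39 (adjusted p = 0.0018), and 1.62 without NZO 8 (adjusted p = 8.2e-04). Ifi44 had 2.84 to 13.4 CPM (median 8.35) in NZO against 0.565 to 3.29 CPM (median 1.01) in NOD, and 7 of 8 NZO libraries lay above every NOD library. For Ifi44 the log2 fold change was 2.27 ± 0.39 (adjusted p = 6.5e-06), and 2.39 without NZO 8 (adjusted p = 2.5e-06). Isg15, a ubiquitin-like modifier, had 2.91 to 7.33 CPM (median 5.56) in NZO against 0.847 to 4.35 CPM (median 2.92) in NOD, but its call was lost without NZO 4, NOD 5, NOD 7 or NOD 8, with an adjusted p of up to 0.057. The Isg15 log2 fold change was 0.91 ± 0.32 (adjusted p = 0.022), and 0.98 without NZO 8 (adjusted p = 0.016). Cxcl10, a chemokine that attracts T cells, had 2.06 to 19.1 CPM (median 7.53) in NZO against 0.594 to 3.41 CPM (median 1.55) in NOD. For Cxcl10 the log2 fold change was 2.11 ± 0.44 (adjusted p = 1.6e-04), and 2.2 without NZO 8 (adjusted p = 1.2e-04). Iigp1, a GTPase induced mainly by interferon gamma, was at 258 to 427 CPM (median 315) in NZO against 261 to 393 CPM (median 323) in NOD and was not called (-0.05, adjusted p = 0.92). Stat2 and Irf1 were among the 6 members not called, and Irf1 was called with Xist as a covariate (0.52, adjusted p = 0.017).

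Of the list, Mx1 had the largest positive and Mx2 the largest negative log2 fold change in both fits. Ifi202b (ENSMUSG00000026535, chr1:173962568-173982744), a DNA-binding protein of the interferon-inducible p200 family and a candidate obesity gene from crosses with NZO, had 5.08 to 17.9 CPM (median 11.2) in NZO against 1.53 to 3.497 CPM (median 2.03) in NOD, without overlap. The Ifi202b log2 fold change was 2.28 ± 0.24 (adjusted p = 1.5e-10), and 2.15 without NZO 8 (adjusted p = 6.5e-10). In the other 6 strains its means were 0 CPM (Cast) to 3.29 CPM (PWK). The antiviral GTPase Mx1 had 5.796 to 15.3 CPM (median 13.4) in NZO against 0.0808 to 1.55 CPM (median 0.737) in NOD, without overlap. For Mx1 the log2 fold change was 3.91 ± 0.43 (adjusted p = 9.0e-11), and 4.0 without NZO 8 (adjusted p = 5.4e-11). Its neighbour and relative Mx2 was the only member lower, with 5 reads over the 8 NZO libraries against 1211 over the 8 NOD libraries (log2 fold change -7.86 ± 0.65 (adjusted p = 5.5e-15), and -8.31 without NZO 8 (adjusted p = 5.6e-14)), and the pair shares similar sequence. Ifi27, a mitochondrial membrane protein, had 29.1 to 87.7 CPM (median 73.3) in NZO against 14.2 to 33.5 CPM (median 20.995) in NOD. The Ifi27 log2 fold change was 1.69 ± 0.2 (adjusted p = 1.2e-09), and 1.8 without NZO 8 (adjusted p = 4.3e-11).

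Promoter sequences of interferon genes are shown because the members moved together. RefSeq promoters (GRCm38.p6) were matched for 33 of the 49 genes tested, and the 250 bases before each start site were searched on both strands for GAAANN followed by GAAA, a core form of the interferon-stimulated response element. It was found in 20 of the 33 (60.6%), in 17 of the 29 of them higher in NZO (58.6%) and in 3 of the 4 not called (75%), against 978 of 32851 promoters in the RefSeq table (2.98%) and 367 of 11146 genes tested that had a promoter (3.29%). A match is a description of the reference sequence, not of a bound site, and the alleles of NZO and NOD were not read. Sequences of 4 members are given below. The promoters of Irf7 and Ifi44, both called higher, are not given, and neither held the motif in its 250 bases. The 4 promoters run 5′ to 3′ toward the start site, with motif letters of either strand in capitals: Ifit1 (chr19:34640639-34640888, plus strand) with 2 motifs, Isg15 (chr4:156200819-156201068, minus strand) with 3 overlapping motifs, Cxcl10 (chr5:92348890-92349139, minus strand) with 1, and Ifi202b (chr1:173982845-173983094, minus strand), which was higher in every NZO library, with none in this window.
Ifit1: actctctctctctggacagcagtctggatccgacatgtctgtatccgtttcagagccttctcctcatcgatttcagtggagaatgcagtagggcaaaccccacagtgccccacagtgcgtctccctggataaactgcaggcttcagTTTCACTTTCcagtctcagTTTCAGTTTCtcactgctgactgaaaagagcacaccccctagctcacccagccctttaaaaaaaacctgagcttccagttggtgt
Isg15: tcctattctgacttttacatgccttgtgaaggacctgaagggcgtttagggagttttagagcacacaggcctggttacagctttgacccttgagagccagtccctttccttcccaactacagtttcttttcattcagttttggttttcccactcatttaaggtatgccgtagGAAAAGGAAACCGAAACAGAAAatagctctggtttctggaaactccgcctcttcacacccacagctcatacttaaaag
Cxcl10: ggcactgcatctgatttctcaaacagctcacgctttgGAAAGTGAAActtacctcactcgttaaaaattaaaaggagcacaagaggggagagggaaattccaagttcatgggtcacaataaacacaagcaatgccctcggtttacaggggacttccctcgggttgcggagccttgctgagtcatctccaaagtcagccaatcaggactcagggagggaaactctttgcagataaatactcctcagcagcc
Ifi202b: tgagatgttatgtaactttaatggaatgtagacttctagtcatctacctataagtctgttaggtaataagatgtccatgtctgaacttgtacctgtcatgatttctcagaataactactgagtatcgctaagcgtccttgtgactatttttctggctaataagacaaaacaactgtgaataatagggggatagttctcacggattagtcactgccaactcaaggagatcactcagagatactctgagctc

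Genes of MHC class I presentation split in both directions: 11 of the 28 genes tested were higher and 7 lower in NZO, and 10 and 6 of 28 without NZO 8. Over class I genes the median log2 fold change was 0.25, and 0.24 without NZO 8. H2-K1 (ENSMUSG00000061232, chr17:33996017-34000333), a classical class I heavy chain, had 251 to 479 CPM (median 414) in NZO against 97.9 to 169 CPM (median 121) in NOD, without overlap. For H2-K1 the log2 fold change was 1.6 ± 0.13 (adjusted p = 1.0e-14), and 1.57 without NZO 8 (adjusted p = 4.6e-14). H2-D1, the other classical chain measured, was at 232 to 439 CPM (median 364) in NZO against 262 to 433 CPM (median 326) in NOD and was not called (0.05, adjusted p = 0.81), nor was their light chain B2m (0.14, adjusted p = 0.37). Among the class Ib genes, H2-T22 had 71.8 to 107 CPM (median 95.3) in NZO against 2.1003 to 3.83 CPM (median 3.196) in NOD, and H2-T23 was higher in every NZO library as well (1.75). The H2-T22 log2 fold change was 4.89 ± 0.16 (adjusted p = 5.0e-33), and 4.9 without NZO 8 (adjusted p = 2.8e-32). H2-T10, a close relative of H2-T22, went the other way, at 1.74 to 3.799 CPM (median 2.19) in NZO against 33.6 to 59.5 CPM (median 43.1) in NOD, as did H2-Q7 (-1.94). For H2-T10 the log2 fold change was -4.23 ± 0.19 (adjusted p = 1.6e-25), and -4.19 without NZO 8 (adjusted p = 4.2e-24).

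The peptide transporter Tap1 and the immunoproteasome subunit Psmb8 were higher (Tap1 (0.87, 0.9 without NZO 8) and Psmb8 (0.75, 0.7 without NZO 8)). Chromosome 17, which carries the MHC, had 41.7% of its tested genes called in either direction, against 29.0 to 35.9% for the other autosomes. MHC genes vary widely in sequence between mouse strains, and how reads of alleles unlike the reference were aligned is not recorded in the labels.

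Genes of MHC class II presentation were higher in NZO: 10 of the 10 genes tested were higher and 0 lower in NZO, and 9 and 0 of 10 without NZO 8. Over class II genes the median log2 fold change was 1.44, and 1.31 without NZO 8. The class II chains H2-Aa and H2-Ab1 had log2 fold changes of H2-Aa (1.25, 1.1 without NZO 8) and H2-Ab1 (1.29, 1.16 without NZO 8), and the chain H2-Eb1 had 20.3 to 122 CPM (median 56.1) in NZO against 7.58 to 27.8 CPM (median 10.4) in NOD. The H2-Eb1 log2 fold change was 2.22 ± 0.38 (adjusted p = 5.5e-06), and 2.06 without NZO 8 (adjusted p = 2.4e-05). Cd74 (ENSMUSG00000024610, chr18:60803848-60812646), the invariant chain that guides class II assembly and is less variable than the class II chains, had 41.2 to 221 CPM (median 109.8) in NZO against 23.2 to 78.9 CPM (median 33.5) in NOD, and 6 of 8 NZO libraries lay above every NOD library. For Cd74 the log2 fold change was 1.51 ± 0.32 (adjusted p = 1.9e-04), and 1.37 without NZO 8 (adjusted p = 8.4e-04). H2-Ea-ps (ENSMUSG00000036322, chr17:34342933-34344643), the E alpha chain gene that is defective in NOD and in the reference strain, had 7049 reads over the 8 NZO libraries against 7 over the 8 NOD libraries, and levels of 7.78 to 50.6 CPM (median 24.7) in NZO against 0 to 0.208 CPM (median 0) in NOD. The H2-Ea-ps log2 fold change was 9.52 ± 0.63 (adjusted p = 1.1e-18), and 9.41 without NZO 8 (adjusted p = 2.5e-18).

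Markers of the cells that carry class II moved with these genes. Of Kupffer cell and macrophage markers, 15 of the 21 genes tested were higher and 0 lower in NZO, and 13 and 0 of 21 without NZO 8, and their summed level was 391 to 2209.6 CPM in NZO livers (median 669.7), against 246 to 562 CPM in NOD livers (median 339.6). Over macrophage genes the median log2 fold change was 1.11, and 0.77 without NZO 8. Csf1r (ENSMUSG00000024621, chr18:61105572-61132149), the receptor that macrophages need to survive, had 37.9 to 165 CPM (median 64.3) in NZO against 16.8 to 40.4 CPM (median 26.8) in NOD, and 7 of 8 NZO libraries lay above every NOD library. For Csf1r the log2 fold change was 1.47 ± 0.24 (adjusted p = 1.9e-06), and 1.2 without NZO 8 (adjusted p = 2.3e-05). Adgre1, which encodes F4/80, was higher (log2 fold change 1.11 ± 0.29 (adjusted p = 0.0023), and 0.9 without NZO 8 (adjusted p = 0.014)), as were Cd5l, a protein secreted by Kupffer cells (log2 fold change 1.31 ± 0.26 (adjusted p = 7.3e-05), and 1.1 without NZO 8 (adjusted p = 6.4e-04)), and Fcgr3, an Fc receptor (log2 fold change 1.86 ± 0.24 (adjusted p = 7.7e-09), and 1.65 without NZO 8 (adjusted p = 6.7e-08)). Clec4f, a lectin of Kupffer cells alone, was at 52.4 to 100.01 CPM (median 90.96) in NZO against 40.5 to 103 CPM (median 63.03) in NOD and was not called (0.31, adjusted p = 0.35). The strain differences of Csf1r and Fcgr3 changed with Xist (interaction -1.98, adjusted p = 0.0072; without NZO 8 -1.49, adjusted p = 0.035 for Csf1r, and interaction -2.26, adjusted p = 4.6e-04; without NZO 8 -2.02, adjusted p = 0.0017 for Fcgr3). The part of these markers in the interferon and MHC differences was not tested.

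Markers of lipid-associated macrophages gave 9 higher and 0 lower of 13 with all libraries, 7 and 0 of 13 without NZO 8 (median log2 fold change 1.39, and 0.57 without NZO 8). Gpnmb, a membrane glycoprotein of these cells, had 0.5796 to 3.95 CPM (median 2.27) in NZO against 0.0914 to 0.639 CPM (median 0.248) in NOD. The Gpnmb log2 fold change was 2.77 ± 0.54 (adjusted p = 5.8e-05), and 2.58 without NZO 8 (adjusted p = 2.1e-04). Trem2, their lipid-sensing receptor, was higher at low levels, with medians of 0.473 CPM in NZO and 0.141 CPM in NOD (log2 fold change 1.94 ± 0.5 (adjusted p = 0.0019), and 1.44 without NZO 8 (adjusted p = 0.019)), and Lgals3, the lectin galectin-3, was higher too (log2 fold change 1.73 ± 0.28 (adjusted p = 2.4e-06), and 1.19 without NZO 8 (adjusted p = 5.0e-05)). The lysosomal protease Ctsd changed by 0.47. Spp1, osteopontin, which bile duct cells also make, was called higher (log2 fold change 0.89 ± 0.24 (adjusted p = 0.0032), and 0.57 without NZO 8 (adjusted p = 0.043)). Among libraries 5 to 8 its log2 fold change was 0.83, and -0.26 without NZO 8.

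Lymphocyte and NK cell markers were read in few copies. Their summed level was 317 CPM in NZO 8, 25.1 to 54.7 CPM in the other NZO livers, and 37.2 to 91.9 CPM in NOD livers. The counts were 7 higher and 1 lower of 27 with all libraries, 4 and 4 of 27 without NZO 8, so the number higher fell and the number lower rose over 1.5 times without that library. Cd4, the coreceptor of helper T cells, was lower, at 0.375 to 1.64 CPM (median 0.677) in NZO against 1.05 to 7.31 CPM (median 2.74) in NOD, and 7 of 8 NZO libraries lay below every NOD library. Among libraries 1 to 4 it was at 0.597 to 0.742 CPM in NZO and 1.05 to 1.43 CPM in NOD. Among libraries 5 to 8 it was at 0.375 to 1.64 CPM in NZO and 4.04 to 7.31 CPM in NOD. For Cd4 the log2 fold change was -2.11 ± 0.65 (adjusted p = 0.0092), and -2.37 without NZO 8 (adjusted p = 0.0063). The T cell receptor subunit Cd3e (0.31, adjusted p = 0.70), Cd8a (0.85, adjusted p = 0.20) and the B cell marker Ms4a1 (1.29, adjusted p = 0.085) were not called. Within NOD, Cd3e ran opposite to Cd4, at 0.304 to 0.688 CPM in libraries 1 to 4 and 0 to 0.137 CPM in libraries 5 to 8. Whether the number of helper T cells differed was not tested. The NK cell receptors Klrd1 and Ncr1 were called higher in both fits (Klrd1 (2.11, 2.03 without NZO 8) and Ncr1 (1.89, 1.53 without NZO 8)), and Ptprc, the antigen CD45 of all leukocytes, was at 13.6 to 95.1 CPM (median 26.6) in NZO against 6.14 to 17.01 CPM (median 10.4) in NOD. The Ptprc log2 fold change was 1.64 ± 0.28 (adjusted p = 4.5e-06), and 1.18 without NZO 8 (adjusted p = 9.1e-05). Nkg7, Ccl5 and Cd79a were called higher with all libraries but not without NZO 8 (Nkg7 (2.0, 0.77 without NZO 8), Ccl5 (1.39, 1.08 without NZO 8) and Cd79a (1.19, 0.83 without NZO 8)). The call of Ccl5 was lost without NZO 8, NOD 5, NOD 6 or NOD 8, with an adjusted p of up to 0.10, and that of Cd79a without NZO 1, NZO 2, NZO 3, NZO 8, NOD 2, NOD 4, NOD 5, NOD 6 or NOD 8, with an adjusted p of up to 0.18.

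Neutrophil markers were at low levels in most libraries and high in NZO 8. Their summed level was 3625 CPM in NZO 8, 3.57 to 38.7 CPM in the other NZO livers, and 5.89 to 113 CPM in NOD livers, and the counts were 8 higher and 0 lower of 9 with all libraries, 5 and 0 of 9 without NZO 8 (median log2 fold change 6.07, and 1.34 without NZO 8). Lyz2, a lysozyme of macrophages and neutrophils, was at 39.6 to 731 CPM (median 73.004) in NZO against 16.6 to 61.7 CPM (median 20.5) in NOD, and in NZO livers other than NZO 8 at 39.6 to 123 CPM. For Lyz2 the log2 fold change was 2.54 ± 0.39 (adjusted p = 7.6e-07), and 1.41 without NZO 8 (adjusted p = 3.4e-05). Ly6g, Mpo and Camp had no row of their own in the table.

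Many acute phase genes were high in NZO 8. Of acute phase proteins and iron genes, 14 of the 25 genes tested were higher and 0 lower in NZO, and 6 and 3 of 25 without NZO 8. Over acute phase genes the median log2 fold change was 0.64, and 0.34 without NZO 8. The summed level was 106124 CPM in NZO 8, 25014 to 37888 CPM in the other NZO livers, and 29259 to 42319 CPM in NOD livers. Saa1 (ENSMUSG00000074115, chr7:46740499-46742980), serum amyloid A1, which the liver makes in inflammation, had 17.9 to 7366 CPM (median 57.9) in NZO against 14.4 to 298 CPM (median 30.6) in NOD, and NZO livers other than NZO 8 had 17.9 to 442 CPM. The Saa1 log2 fold change was 3.54 ± 1.17 (adjusted p = 0.015), and 0.37 without NZO 8 (adjusted p = 0.81). It shares reads with Saa2. Lcn2, an iron-withholding lipocalin, was at 1.08 to 1139 CPM (median 14.9) in NZO against 3.27 to 109 CPM (median 9.399) in NOD. For Lcn2 the log2 fold change was 2.43 ± 1.03 (adjusted p = 0.061), and -1.17 without NZO 8 (adjusted p = 0.33). Hp, haptoglobin, was called with all libraries (log2 fold change 0.85 ± 0.33 (adjusted p = 0.041), and -0.01 without NZO 8 (adjusted p = 0.97)), but the call was lost without NZO 8, NOD 1, NOD 3, NOD 5, NOD 6, NOD 7 or NOD 8, with an adjusted p of up to 0.97. Among libraries 1 to 4 the log2 fold changes were -0.98 for Saa1, -1.9 for Lcn2 and -0.03 for Hp, and with Xist as a covariate Saa1 (2.26, adjusted p = 0.16) and Hp (0.7, adjusted p = 0.078) were not called.

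Other members kept a difference without NZO 8. Hpx, which binds free haem, had 2349.96 to 14942 CPM (median 3128) in NZO against 1402 to 2655 CPM (median 1768) in NOD, and Il1rn, the interleukin-1 receptor antagonist, had 1.83 to 17.5 CPM (median 7.73) in NZO against 0.411 to 3.38 CPM (median 1.06) in NOD. The Hpx log2 fold change was 1.32 ± 0.26 (adjusted p = 5.6e-05), and 0.76 without NZO 8 (adjusted p = 0.0022). For Il1rn the log2 fold change was 2.29 ± 0.52 (adjusted p = 4.3e-04), and 2.0 without NZO 8 (adjusted p = 0.0023). Orm2, an acid glycoprotein, was called only with NZO 8 (log2 fold change 4.87 ± 1.07 (adjusted p = 2.8e-04), and 1.69 without NZO 8 (adjusted p = 0.11)). Serpina3n, an acute phase protease inhibitor, was at 331 to 3342 CPM (median 397) in NZO against 588 to 819 CPM (median 743) in NOD. With NZO 8 left out it was lower in NZO, and 6 of 8 NZO libraries lay below every NOD library while NZO 8 lay above (log2 fold change 0.11 ± 0.35 (adjusted p = 0.84), and -0.79 without NZO 8 (adjusted p = 0.022)). Hamp, the iron hormone hepcidin, was at 35.8 to 282 CPM (median 94.3) in NZO against 99.5 to 656 CPM (median 415) in NOD, with a call in the lower direction without NZO 8. The Hamp log2 fold change was -1.54 ± 0.63 (adjusted p = 0.055), and -1.76 without NZO 8 (adjusted p = 0.039). Tfrc, the transferrin receptor, was called higher (0.64, adjusted p = 0.03), but the call was lost without NZO 5, NZO 7, NOD 1, NOD 2, NOD 3 or NOD 5, with an adjusted p of up to 0.078. The number of members lower ran from 0 to 3, moving without NZO 5, NZO 8 or NOD 6.

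**Figure D4:**
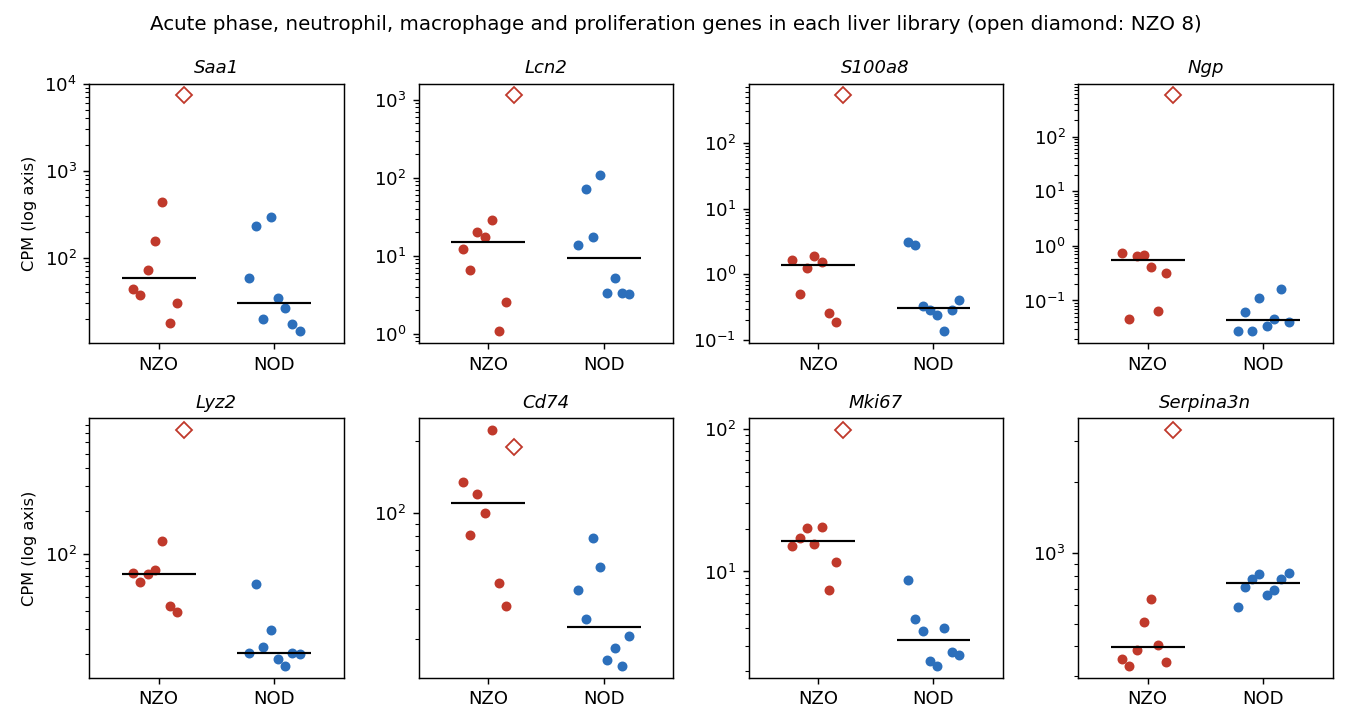
Each panel gives CPM on a log axis for 1 gene, with NZO libraries (red) left of NOD libraries (blue), the open diamond for NZO 8 and a line at the median of the 8 libraries. NZO 8 is the highest library for Saa1, Lcn2, S100a8, Ngp, Lyz2, Mki67 and Serpina3n but not for Cd74, and for Serpina3n the other NZO livers lie mostly below the NOD livers.

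Most cell cycle and replication genes were called higher with all libraries: 21 of the 27 genes tested were higher and 0 lower in NZO, and 14 and 0 of 27 without NZO 8. Over cell cycle genes the median log2 fold change was 1.33, and 0.83 without NZO 8. By number, they gave 10 higher and 2 lower of 26 among libraries 1 to 4, and 14 and 0 of 25 among libraries 5 to 8. Mki67 (ENSMUSG00000031004, chr7:135689788-135716379), which marks dividing cells, had 7.401 to 97.6 CPM (median 16.4) in NZO against 2.18 to 8.65 CPM (median 3.299) in NOD, and 7.401 to 20.6 CPM in NZO livers other than NZO 8. For Mki67 the log2 fold change was 2.72 ± 0.41 (adjusted p = 5.3e-07), and 1.97 without NZO 8 (adjusted p = 1.2e-05). Rrm2, the ribonucleotide reductase subunit of S phase, was at 2.71 to 12.6 CPM (median 3.76) in NZO against 0.871 to 1.49 CPM (median 1.0005) in NOD, and Ccnb2, a mitotic cyclin, was higher in every NZO library as well. The Rrm2 log2 fold change was 2.09 ± 0.27 (adjusted p = 8.2e-09), and 1.69 without NZO 8 (adjusted p = 6.1e-08). For Ccnb2 the log2 fold change was 2.09 ± 0.36 (adjusted p = 5.4e-06), and 1.61 without NZO 8 (adjusted p = 9.7e-05). Ccnd1, the G1 cyclin, was at 7.401 to 28.4 CPM (median 21.2) in NZO against 5.86 to 68.6 CPM (median 26.8) in NOD and was not called (-0.71, adjusted p = 0.27), but its strain difference changed with Xist (interaction -3.95, adjusted p = 9.8e-05; without NZO 8 -3.69, adjusted p = 3.2e-04). Which cells divided cannot be read from these libraries, and the leukocyte marker Ptprc was higher in the same livers (log2 fold change 1.64).

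Of complement and coagulation genes, 2 of the 38 genes tested were higher and 10 lower in NZO, and 2 and 12 of 38 without NZO 8. Over complement genes the median log2 fold change was -0.21, and -0.37 without NZO 8. Hc (ENSMUSG00000026874, chr2:34983331-35061438), which encodes complement C5 and carries a loss-of-function allele in NOD, had 654 to 1470.3 CPM (median 832) in NZO against 209 to 346 CPM (median 276) in NOD, without overlap, and its means in the other 6 strains were 281 CPM (AJ) to 1600.4 CPM (WSB). The Hc log2 fold change was 1.67 ± 0.16 (adjusted p = 2.0e-12), and 1.52 without NZO 8 (adjusted p = 9.0e-12). The coagulation factors F11 and F12 and complement C2 were lower in every NZO library (log2 fold changes F11 (-1.16, -1.21 without NZO 8), F12 (-0.77, -0.78 without NZO 8) and C2 (-1.03, -1.14 without NZO 8)). C3 (0.31, adjusted p = 0.27), C4b (0.12, adjusted p = 0.52) and prothrombin, F2 (-0.18, adjusted p = 0.17), were not called. C6 was not called (-2.12, adjusted p = 0.065), with means over libraries 1 to 4 and 5 to 8 of 26.2 and 88.2 CPM in NZO, against 15.1 and 483 CPM in NOD, and its difference changed with Xist (interaction 4.82, adjusted p = 4.5e-04; without NZO 8 4.85, adjusted p = 9.9e-04). Kng2, a kininogen, was called higher (log2 fold change 0.51 ± 0.14 (adjusted p = 0.0041), and 0.32 without NZO 8 (adjusted p = 0.049)).

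Markers of stellate cells and fibrosis went in both directions, with 8 higher and 9 lower of 27 with all libraries, 5 and 10 of 27 without NZO 8, and the number higher moved over 1.5 times without NZO 8. Col1a1, the fibrillar collagen of scars, was at 6.66 to 32.5 CPM (median 12.9) in NZO against 4.68 to 14.7 CPM (median 6.79) in NOD, and Col3a1 was not called (0.21, adjusted p = 0.66). For Col1a1 the log2 fold change was 1.02 ± 0.34 (adjusted p = 0.015), and 0.78 without NZO 8 (adjusted p = 0.072). Col5a2, another fibrillar collagen, was higher in every NZO library (log2 fold change 1.44 ± 0.42 (adjusted p = 0.0052), and 1.25 without NZO 8 (adjusted p = 0.019)), Vim was higher (log2 fold change 1.1 ± 0.22 (adjusted p = 9.5e-05), and 0.68 without NZO 8 (adjusted p = 0.0026)) and Timp1, the metalloproteinase inhibitor, was higher at medians of 0.381 CPM in NZO and 0.0962 CPM in NOD (log2 fold change 2.28 ± 0.66 (adjusted p = 0.0051), and 1.71 without NZO 8 (adjusted p = 0.039)). Reln, a glycoprotein of quiescent stellate cells, and Rgs5, a pericyte regulator, were lower in every NZO library, and Dcn, decorin, was lower in most (Reln (-1.12, -1.16 without NZO 8), Rgs5 (-0.93, -1.02 without NZO 8) and Dcn (-0.36, -0.43 without NZO 8)). Lrat, the retinol-storing enzyme of stellate cells, was not called (-0.17, adjusted p = 0.50).

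Sinusoidal endothelial markers gave 1 higher and 8 lower of 17 with all libraries, 0 and 7 of 17 without NZO 8 (median log2 fold change -0.29, and -0.29 without NZO 8). Stab2, a scavenger receptor of these cells, had 78.5 to 116 CPM (median 87.04) in NZO against 95.2 to 146 CPM (median 128) in NOD. The Stab2 log2 fold change was -0.48 ± 0.12 (adjusted p = 0.0013), and -0.54 without NZO 8 (adjusted p = 3.8e-04). Fcgr2b, an inhibitory Fc receptor, Wnt2, a signal to neighbouring hepatocytes, and Tek, the angiopoietin receptor, were lower in every NZO library (Fcgr2b (-0.44, -0.45 without NZO 8), Wnt2 (-0.88, -0.77 without NZO 8) and Tek (-0.42, -0.36 without NZO 8)), and Lyve1 was not called (-0.07, adjusted p = 0.84). The 1 member called higher, Pecam1 (0.27, adjusted p = 0.04), lost its call without NZO 1, NZO 3, NZO 4, NZO 8, NOD 1, NOD 5, NOD 6 or NOD 7, with an adjusted p of up to 0.25. Cholangiocyte markers gave 1 higher and 3 lower of 9 with all libraries, 1 and 3 of 9 without NZO 8. The keratin Krt19 was lower in every NZO library (log2 fold change -1.19 ± 0.25 (adjusted p = 1.7e-04), and -1.19 without NZO 8 (adjusted p = 4.1e-04)), the regulator Sox9 was lower than in every NOD library in 7 of 8 (log2 fold change -1.65 ± 0.34 (adjusted p = 1.2e-04), and -2.01 without NZO 8 (adjusted p = 5.6e-06)), and the mucin Muc1 was called lower with overlap (-0.82, adjusted p = 0.011), while Krt7 (-0.38, adjusted p = 0.26) and Epcam (-0.22, adjusted p = 0.56) were not called. The acinar pancreas list had 1 gene tested, the elastase Cela1, at 1.25 to 7.01 CPM (median 1.904) in NZO against 1.87 to 25.5 CPM (median 19.8) in NOD, and 9 of its 11 genes had no row of their own. For Cela1 the log2 fold change was -2.75 ± 0.48 (adjusted p = 1.0e-05), and -2.69 without NZO 8 (adjusted p = 4.0e-05). Red cell transcripts gave 1 higher and 0 lower of 7 with all libraries, 1 and 0 of 7 without NZO 8, the higher one being the anion exchanger Slc4a1 (log2 fold change 1.32 ± 0.41 (adjusted p = 0.0089), and 1.12 without NZO 8 (adjusted p = 0.032)), and the globins Hbb-bs and Hba-a1 were not called (Hbb-bs (0.05) and Hba-a1 (-0.16)).

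Of circadian clock genes and outputs, 3 of the 19 genes tested were higher and 0 lower in NZO, and 3 and 1 of 19 without NZO 8. Among all genes tested, 17.4% were higher and 15.4% lower with all libraries. Over clock genes the median log2 fold change was 0.26, and 0.3 without NZO 8. Dbp, a transcription factor with a strong daily rhythm, had 2.18 to 21.9 CPM (median 7.16) in NZO against 0.181 to 1.46 CPM (median 0.605) in NOD, without overlap. The Dbp log2 fold change was 3.67 ± 1.21 (adjusted p = 0.015), and 3.81 without NZO 8 (adjusted p = 0.014). Per3 and Nr1d2, 2 further rhythmic genes that peak near it, were also higher in every NZO library (Per3 (2.11, 2.17 without NZO 8) and Nr1d2 (1.08, 1.15 without NZO 8)). Arntl, which peaks at the opposite time, was at 16.4 to 26.4 CPM (median 21.1) in NZO against 29.6 to 39.04 CPM (median 33.97) in NOD, below every NOD library in all 8 NZO libraries, but was not called in the fit over all strains (-0.65, adjusted p = 0.17). Per1 (0.26, adjusted p = 0.62) and Nr1d1 (1.09, adjusted p = 0.13) were not called. The time of day at collection is not given by the labels, so strain and time of collection cannot be told apart for these genes.

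Immediate early genes gave 3 higher and 1 lower of 15 with all libraries, 3 and 1 of 15 without NZO 8. Klf6 and Ier3 were higher and Ier2 lower (log2 fold changes Klf6 (1.51, 1.34 without NZO 8), Ier3 (2.21, 1.42 without NZO 8) and Ier2 (-1.53, -1.67 without NZO 8)), and Ier3 had 8.21 CPM in NZO 8, against 0.312 to 1.95 CPM in the other NZO livers. Fos (-1.8, adjusted p = 0.093), Egr1 (-1.04, adjusted p = 0.26) and Myc (1.06, adjusted p = 0.086) were not called. Atf3, which belongs to this list and to the stress list, was called higher (log2 fold change 1.4 ± 0.45 (adjusted p = 0.013), and 1.49 without NZO 8 (adjusted p = 0.011)) but the call was lost without NZO 3, with an adjusted p of up to 0.08. ER stress and heat shock genes gave 1 higher and 6 lower of 25 with all libraries, 1 and 6 of 25 without NZO 8 (median log2 fold change -0.19, and -0.24 without NZO 8). The chaperone Hspa1a, which shares its coding sequence almost wholly with Hspa1b, had a log2 fold change of -2.21, adjusted p = 0.0032, and Hspa1b was not called (-0.57, adjusted p = 0.51). Herpud1 and Pdia3, of protein quality control in the endoplasmic reticulum, were lower (Herpud1 (-0.76, -0.73 without NZO 8) and Pdia3 (-0.59, -0.65 without NZO 8)), while Hspa5 (-0.1, adjusted p = 0.78) and Ddit3 (0.53, adjusted p = 0.066) were not called.

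Of secreted regulators of metabolism, 5 of the 22 genes tested were higher and 5 lower in NZO, and 4 and 6 of 21 without NZO 8. The shares over all genes tested were 17.4% higher and 15.4% lower, and 14.8% and 15.2% without NZO 8. Over hepatokine genes the median log2 fold change was 0.21, and 0.23 without NZO 8. Fst, the activin antagonist follistatin, had 7.86 to 37.9 CPM (median 24.96) in NZO against 2.23 to 4.51 CPM (median 3.01) in NOD, without overlap. For Fst the log2 fold change was 2.78 ± 0.55 (adjusted p = 7.1e-05), and 2.61 without NZO 8 (adjusted p = 2.4e-04). Gdf15, a stress hormone that lowers food intake, was at 5.01 to 28.3 CPM (median 22.1) in NZO against 2.04 to 15.6 CPM (median 5.204) in NOD. The Gdf15 log2 fold change was 1.43 ± 0.44 (adjusted p = 0.0095), and 1.42 without NZO 8 (adjusted p = 0.014). Angptl6 was lower in every NZO library, and Ahsg, fetuin-A, was lower in most, at 2776 to 6665 CPM (median 3992) in NZO against 5122 to 8354 CPM (median 5943) in NOD, as was the matrix protein Sparc (-0.55). For Angptl6 the log2 fold change was -1.04 ± 0.18 (adjusted p = 9.7e-06), and -0.99 without NZO 8 (adjusted p = 4.6e-05). The Ahsg log2 fold change was -0.63 ± 0.17 (adjusted p = 0.0033), and -0.78 without NZO 8 (adjusted p = 4.0e-04). The fasting hormone Fgf21 was at 1.08 to 8.18 CPM (median 4.49) in NZO against 1.62 to 4.93 CPM (median 2.12) in NOD and was not called (0.64, adjusted p = 0.39), nor were Angptl8 (0.75, adjusted p = 0.13), Inhbe (0.77, adjusted p = 0.15) and the leptin receptor Lepr (1.41, adjusted p = 0.11), of which Lepr was called with Xist as a covariate (2.19, adjusted p = 0.002).

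Nuclear-encoded genes of oxidative phosphorylation were mostly not called: 3 of the 56 genes tested were higher and 7 lower in NZO, and 4 and 6 of 56 without NZO 8. Over oxidative phosphorylation genes the median log2 fold change was -0.03, and 0.01 without NZO 8. All called members differed by a log2 fold change of less than 1. Cytochrome c, Cycs, had 38.03 to 58.1 CPM (median 54.04) in NZO against 31.99 to 44.4 CPM (median 37.97) in NOD, and the complex I subunits Ndufs4 and Ndufb8 were higher (Ndufs4 (0.32) and Ndufb8 (0.38)). For Cycs the log2 fold change was 0.47 ± 0.1 (adjusted p = 2.3e-04), and 0.52 without NZO 8 (adjusted p = 5.1e-05). Ndufs7 and Ndufa6 of the same complex and Cox5a of complex IV were lower (Ndufs7 (-0.4), Ndufa6 (-0.26) and Cox5a (-0.29)). Atp5a1, a core subunit of the ATP synthase, was at 535 to 1020.5 CPM (median 848) in NZO against 756 to 894 CPM (median 866) in NOD and was not called (0.0, adjusted p = 0.97).

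Candidate genes named from crosses with NZO gave 4 higher and 2 lower of 12 with all libraries, 3 and 2 of 12 without NZO 8. Besides Ifi202b, Pctp and Igfbp2, Abcg1, a cholesterol transporter, was at 6.75 to 19.1 CPM (median 10.8) in NZO against 5.41 to 9.65 CPM (median 6.22) in NOD. The Abcg1 log2 fold change was 0.81 ± 0.17 (adjusted p = 1.3e-04), and 0.66 without NZO 8 (adjusted p = 0.0012). Zfp69, a zinc finger gene, was lower in every NZO library, at 0.979 to 1.74 CPM (median 1.18) in NZO against 2.104 to 3.09 CPM (median 2.61) in NOD. For Zfp69 the log2 fold change was -1.06 ± 0.16 (adjusted p = 6.6e-07), and -1.02 without NZO 8 (adjusted p = 3.3e-06). Tbc1d1, a regulator of glucose transporter traffic, was called with all libraries only (log2 fold change 0.48 ± 0.15 (adjusted p = 0.011), and 0.34 without NZO 8 (adjusted p = 0.071)), and Dpp4 (-0.24, adjusted p = 0.1) and Txnip (-0.1, adjusted p = 0.78) were not called. Candidate genes named from crosses with NOD gave 9 higher and 0 lower of 15 with all libraries, 8 and 0 of 15 without NZO 8, and all those called were higher in NZO. Slc11a1, a metal transporter of macrophage phagosomes, had 6.94 to 21.6 CPM (median 12.3) in NZO against 3.29 to 9.68 CPM (median 5.15) in NOD, and Fcgr1, the high-affinity Fc receptor, had 2.06 to 8.53 CPM (median 4.63) in NZO against 1.09 to 2.23 CPM (median 1.57) in NOD. The Slc11a1 log2 fold change was 1.23 ± 0.23 (adjusted p = 1.9e-05), and 1.09 without NZO 8 (adjusted p = 1.4e-04). For Fcgr1 the log2 fold change was 1.52 ± 0.27 (adjusted p = 8.5e-06), and 1.33 without NZO 8 (adjusted p = 6.6e-05). Nfkbid, an atypical inhibitor of NF-kappaB, was at medians of 0.410 CPM in NZO and 0.142 CPM in NOD (log2 fold change 1.66 ± 0.37 (adjusted p = 3.6e-04), and 1.28 without NZO 8 (adjusted p = 0.0044)). Macrophages express Slc11a1 and Fcgr1, and the part of the macrophage markers in these differences was not tested.

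Set against the other 6 strains, the called genes more often had NZO than NOD at the edge. Of the 5289, NZO alone lay outside the range of the other 6 strain means for 2218 (41.9%), NOD alone for 928 (17.5%), both for 363 (6.86%) and neither for 1780 (33.7%). NZO 8 enters these means. These genes were picked for a difference between NZO and NOD, and the same shares over all genes tested were not computed. The shares were not tested. The spread between libraries was larger in NZO for 61.3% of the genes tested, with a median SD of 0.303 in NZO and 0.251 in NOD on the log2 CPM scale, and for 47.8% without NZO 8, with a median SD of 0.245 in NZO.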

How the data were processed

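RNA sequencing counts of liver were analysed for 8 NZO and 8 NOD libraries within 60 libraries of 8 strains, each group taken from its label. The deposited table holds estimated counts per gene (21% of values not whole), which were rounded to whole numbers here, and a log2-scale matrix transformed by the authors for stable variance was used as an alternative. The submitters' processing notes name GRCm38 and DESeq2, with no version. For the aligner, the counter, the use of strand and the handling of alleles unlike the reference, nothing is stated in the labels or notes. Gene starts and ends come from the deposited annotation, and 18684 of the 18754 IDs were found in GENCODE M21. Every gene of the table had reads in at least 29 libraries. There was 1 column of per-sample values whose name matched no labelled sample, and it was not used. External spike-in controls were not analysed here.

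Differences were tested with edgeR 4.0.16 in R 4.3.3 (TMM normalization, filterByExpr by strain, quasi-likelihood F test on all 60 libraries with strain as the only factor, Benjamini-Hochberg adjustment over all genes tested, threshold 0.05). Fold changes are log2, NZO over NOD, with SE from the F statistic, and CPM uses TMM library sizes. Single shares were compared with two-sided exact permutation tests. Precision is set by 22.4 to 69.2 M reads per NZO library and 22.97 to 34.3 M per NOD library. On simulated counts for NZO against NOD over 16165 genes, 85% of changes of log2 size 1 and 52% of size 0.5 were recovered, and 5.52% of calls were false. The changed genes, 100 of each size, were drawn only from genes above a minimum expected count. Recovery in genes of few reads was therefore not measured. Far fewer genes were changed in the simulation than were called in the data. Alternatives used DESeq2 1.42.0, limma 3.58.1 on the transformed values, other scalings and filters, a replicate block, Xist as a covariate and leaving out each library.

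The text names the 12 largest called differences in each direction among protein-coding genes of at least 5 CPM, preset key members of 40 gene lists, and up to 3 further called members of each list in each direction. A few genes that this rule picks are not reported here. Irf1, Stat2, Saa2 and Alb were named after their values were seen. The comparison and all lists were chosen with earlier results of these data known. Lists are described by counts and medians, with no set test. Counts over all libraries stand against 17.4% higher and 15.4% lower over all genes tested, or 14.8% and 15.2% without NZO 8. Those of libraries 1 to 4 stand against 17.2% and 17.0%, and those of libraries 5 to 8 against 11.6% and 9.19%. Counts with Xist as a covariate stand against 19.2% and 16.7%.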

Additional observations from a re-analysis of the deposited data

Results flagged for a closer look

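Over 266 genes named in the text, each in both strains, 68 of 532 groups held a library whose gap to the nearest other library was large for the range of its group, and about 1 in 20 groups would be picked by chance. NZO 8 was that library in 56 of the 68 groups. It was the highest NZO library for A2m (209.97 CPM), Asns (9.097 CPM), C3 (21777 CPM), Ccnb2 (4.86 CPM), Cd4 (1.64 CPM), Dcn (119 CPM), Hc (1470.3 CPM), Hp (14449.9 CPM), Hpx (14942 CPM) and Irs2 (103 CPM). Also highest there were Kng2 (485 CPM), Lcn2 (1139 CPM), Ltf (423 CPM), Lyz2 (731 CPM), Mki67 (97.6 CPM), Ngp (566 CPM), Orm2 (1500.3 CPM), Pck2 (6.002 CPM), Pecam1 (44.4 CPM) and Ptpn1 (79.4 CPM). Further high values in NZO 8 were those of Retnlg (45.2 CPM), Rrm2 (12.6 CPM), S100a8 (525 CPM), S100a9 (713 CPM), Serpina3n (3342 CPM), Socs3 (52.3 CPM) and Sox9 (10.3 CPM). It was the lowest NZO library for A4gnt (25.7 CPM), Abcb11 (193 CPM), Akr1c18 (9.26 CPM), Angptl6 (2.94 CPM), Atp5a1 (535 CPM), Cox5a (50.3 CPM), Cycs (38.03 CPM), Cyp1a2 (13.4 CPM), Cyp2c29 (9.29 CPM) and Cyp3a11 (56.9 CPM). Also lowest there were Cyp4a14 (36.4 CPM), Gclc (139.7 CPM), Gclm (118 CPM), Gsta2 (0.0632 CPM), Gstm1 (57.3 CPM), Gstm3 (0.0948 CPM), Gstm4 (25.5 CPM), Gstm6 (0.884 CPM), Hsd3b7 (200.5 CPM) and Ifi27 (29.1 CPM). Further low values in NZO 8 were those of Lipc (36.8 CPM), Mogat1 (1.45 CPM), Ndufa6 (33.1 CPM), Ndufb8 (56.4 CPM), Ndufs4 (36.7 CPM), Ndufs7 (18.3 CPM), Nr1d1 (4.11 CPM), Scd1 (404 CPM) and Vldlr (4.83 CPM). Of the other libraries, NZO 4 was the lowest NZO library for Myc (2.43 CPM), NZO 5 was the lowest NZO library for F12 (118 CPM), NZO 5 was the lowest NZO library for Reln (47.6 CPM), NZO 6 was the highest NZO library for Cela1 (7.01 CPM), NZO 6 was the highest NZO library for Cps1 (5647 CPM), NZO 6 was the highest NZO library for Hpd (1953 CPM), NZO 6 was the highest NZO library for Stat5b (88.5 CPM) and NZO 7 was the lowest NZO library for Cyp7a1 (19.7 CPM). NOD 2 was the highest NOD library for Lyz2 (61.7 CPM), NOD 3 was the highest NOD library for Fah (547 CPM), NOD 3 was the highest NOD library for H2-Q7 (27.8 CPM) and NOD 4 was the lowest NOD library for Pgk1 (209 CPM).

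The difference between NZO and NOD changed with the Xist level for 32 of the named genes (edgeR test of the interaction over all libraries, adjusted p under 0.05, with 4.31% of all genes called). The log2 fold change, NZO over NOD, was higher in libraries of high Xist for Acaca (2.25), Angptl8 (2.47), Apoa1 (1.3), C6 (4.82), Cyp2d10 (1.15), F12 (0.77), Mup20 (6.85) and Mup21 (7.76). It was lower in libraries of high Xist for A1bg (-6.56), A2m (-11.86), Adgre1 (-2.38), Btnl9 (-3.45), C3 (-1.46), Ccnd1 (-3.95), Cd36 (-3.4), Csf1r (-1.98), Cyp4a14 (-6.02) and Enho (-3.36). Also lower there were Fcgr3 (-2.26), Lcn2 (-10.08), Lyz2 (-3.15), Nqo1 (-2.57), Orm2 (-6.86), Pctp (-2.69), Ptprc (-1.93), S100a8 (-11.29), Saa1 (-9.05) and Saa2 (-11.48). The remaining ones lower there were Serpina1e (-4.05), Slc11a1 (-1.43), Sult3a1 (-10.33) and Tbc1d1 (-1.2). Without NZO 8 the interaction was called for A1bg, Adgre1, Apoa1, C6, Ccnd1, Cd36, Csf1r, Cyp4a14, F12, Fcgr3, Mup20, Mup21, Nqo1, Pctp and Sult3a1, and not for A2m, Acaca, Angptl8, Btnl9, C3, Cyp2d10, Enho, Lcn2, Lyz2, Orm2, Ptprc, S100a8, Saa1, Saa2, Serpina1e, Slc11a1 and Tbc1d1. In NZO that library is 1 of the 4 of low Xist.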

How the results depend on the processing

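The number of called genes was 5289, and it was 4840 to 5359 with 1 library left out, 5298 with RLE normalization, 5486 with DESeq2, 5009 with NZO and NOD libraries alone, 5402 with no filter on low counts, 5105 with limma on the transformed values and 5805 with Xist as a covariate. The numbers higher and lower kept within 1.5 times of 2805 and 2484 under all of these. The alternatives by library number and the interaction with Xist were chosen after seeing the data. Libraries numbered 5 to 8 gave 2931 called genes, 1636 higher and 1295 lower, from 8 of the 16 libraries, and 3937 without NZO 8. The interaction was called for 696 genes, and for 345 without NZO 8. Same-numbered NZO and NOD libraries correlated in their deviations from the strain means at r of 0.057 to 0.404, and 3 of 8 correlated best with their own number, so the numbers were not taken as pairs. A replicate block gave 4925 called genes, 2602 higher and 2323 lower.

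Without NZO 8, the difference in mitochondrial share (NZO minus NOD) was 0.136 percentage points, against -0.0444 with all libraries, and the percent of genes with a larger SD in NZO was 47.8, against 61.3. Log2 fold changes that took the other sign without NZO 8 were Hp (-0.0141) and Serpina3n (-0.789), which with 1 library left out reached 0.99 and 0.226 at most. With Xist as a covariate and without NZO 8 they were Saa1 (-0.0247), Hp (-0.0145) and Serpina3n (-0.796). Among libraries 1 to 4 the sign changed for S100a8 (-0.28), Sds (-0.642), Lcn2 (-1.90), C6 (0.79), Saa1 (-0.975), Saa2 (-0.529), Hp (-0.0338), Serpina3n (-0.879) and Mup21 (0.491). Among libraries 5 to 8 it changed for Ccnd1 (1.37), and without NZO 8 for Ccnd1 (1.1), Myh2 (0.652), Serpina3n (-0.655), Grb10 (-0.006) and Spp1 (-0.256). The cause was not tested. Intervals from read counts cover counting error only, and genes with medians under 1 CPM, such as lymphocyte markers, rest on few reads.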
